A study of Homo sapiens with 12 samples.

Results

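Cells given BMS-309403, a small molecule that blocks FABP4, a carrier protein for fatty acids, were compared with cells given oleate, a monounsaturated fatty acid, where both also received palmitate, a saturated fatty acid. The 6 libraries, 3 of the PA+BMS group and 3 of the PA+OA group, were chosen from 12 by their labels. All came from wild-type HepaRG cells, a human hepatic line able to adopt features of hepatocytes or of bile duct cells, in a study whose title concerns liver fibrosis. PA+OA cells had 400 µM deuterium-labelled palmitate and 200 µM oleate for 4 h. PA+BMS cells had 50 µM BMS-309403 for 24 h and the same 400 µM palmitate for 4 h. The agent, its dose and its duration therefore differed together between the groups and cannot be told apart. The other groups, 3 libraries each of untreated control and of palmitate alone for 4 h (PA), give reference levels and enter the estimate of spread. Whether replicates were separate cultures is not given, so p-values measure the spread between these libraries, which may be technical.

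RNA was measured as FPKM, fragments scaled to gene length and library size, for 58735 annotated genes. The comparison covers the 11294 genes with at least 1 FPKM in at least 3 of the 6 libraries. Every difference is PA+BMS minus PA+OA as log2(FPKM + 1). This scale makes changes of weakly expressed genes look smaller than they are. Where 3 values stand against 3, replicates 1, 2 and 3 of PA+OA come first and those of PA+BMS second. A gene is called where its adjusted p is under 0.05. The filter let in 183 genes only through PA+OA, where all 3 libraries reached 1 FPKM and none of PA+BMS did, and 159 only through PA+BMS. Such genes had to differ, and those named below are HSPA6, ISG20, CXCL3, DUSP6, SPRY4, MFSD2A, MLXIPL, MT1X, CSF1R and AL592464.1 on the PA+OA side and PPARA and AC007785.1 on the PA+BMS side.

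As background, misfolded protein in the cytosol activates the factor HSF1, which induces heat shock proteins. Stress in the endoplasmic reticulum (ER) activates the unfolded protein response through the sensors IRE1, ATF6 and PERK, and PERK feeds the integrated stress response through the factors ATF4 and CHOP. Palmitate is known to stress the ER of hepatic cells, and oleate is readily stored as triglyceride. Genes of cholesterol synthesis and uptake are switched on by the SREBP factors, which INSIG proteins hold in the ER when sterols are plentiful. FABP4 is a carrier of fatty acids best known from adipocytes and macrophages.

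Whole reads recovered from the values numbered 17123503 to 19971190 in the 6 libraries. Replicate 1 of PA+OA (54.0) and replicate 3 of PA+BMS (-51.0) stood apart from their groups on the first principal component. On it the other libraries lay at 17.8 and 10.5 in PA+OA and at -16.7 and -19.4 in PA+BMS. The groups were thus apart on this component also without the 2 libraries that stand apart. This component held 56.6% of the variance, and its loadings rose with the GC content of genes (Spearman 0.71 over genes that are not independent). GC content and gene length explained 47.6% of the variance of the log2 differences, and 25.9% without those 2 libraries. The median GC content of called genes was 43.4% among those higher and 57.8% among those lower in PA+BMS. Of the 11294 genes 5850 were called (51.8%), 2721 higher (24.1%) and 3129 lower (27.7%) in PA+BMS, and 551 of these differed at least 2-fold (4.88%), 128 higher (1.13%) and 423 lower (3.75%). Without both libraries that stand apart (below, without both libraries) 2657 were called (23.5%), 1112 higher (9.85%) and 1545 lower (13.7%). When the fit held only the 4 other libraries of the 2 groups, 4544 were called (40.2%), 1937 higher (17.2%) and 2607 lower (23.1%), so the number without both also depended on whether control and PA entered. In a fit of only the 6 libraries 2425 were called (21.5%), 1031 higher (9.13%) and 1394 lower (12.3%). Where the dependence on GC content and length was fitted per library and subtracted (below, with the trend removed) 3824 were called (33.9%), 1989 higher (17.6%) and 1835 lower (16.3%), and with both libraries left out as well 2176 were (19.3%), 1102 higher (9.76%) and 1074 lower (9.52%). Without PA+OA replicate 1 alone 1660 were higher and 2073 lower, and without PA+BMS replicate 3 alone 1409 were higher and 1779 lower. With library totals set equal the median difference of all genes moved from -0.026 to 0.24, and 6017 were called (53.3%), 4522 higher (40.0%) and 1495 lower (13.2%). Then 75.2% of called genes were higher against 46.5%. Voom on reads called 5897 (52.2%), 3929 higher (34.8%) and 1968 lower (17.4%), with 66.6% of called genes higher, and quantile normalization 5705 (50.5%), 3008 higher (26.6%) and 2697 lower (23.9%). With precision weights 8499 were called (75.3%), 4016 higher (35.6%) and 4483 lower (39.7%). The weights of replicates 1, 2 and 3 were 0.0947, 20.5 and 0.628 in PA+OA and 1.73, 5.06 and 0.149 in PA+BMS. The PA+OA mean of that fit thus rested mainly on replicate 2. The 3 libraries of each group did not overlap in 6865 genes (60.8%), 3232 higher (28.6%) and 3633 lower (32.2%) in PA+BMS. Calls in the same direction in 4 alternatives (the 6 libraries alone, without both, trend removed, totals equal) numbered 1448 (12.8%), 637 higher (5.64%) and 811 lower (7.18%). Small differences near 0 depend on the scaling.

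**Figure D1:**
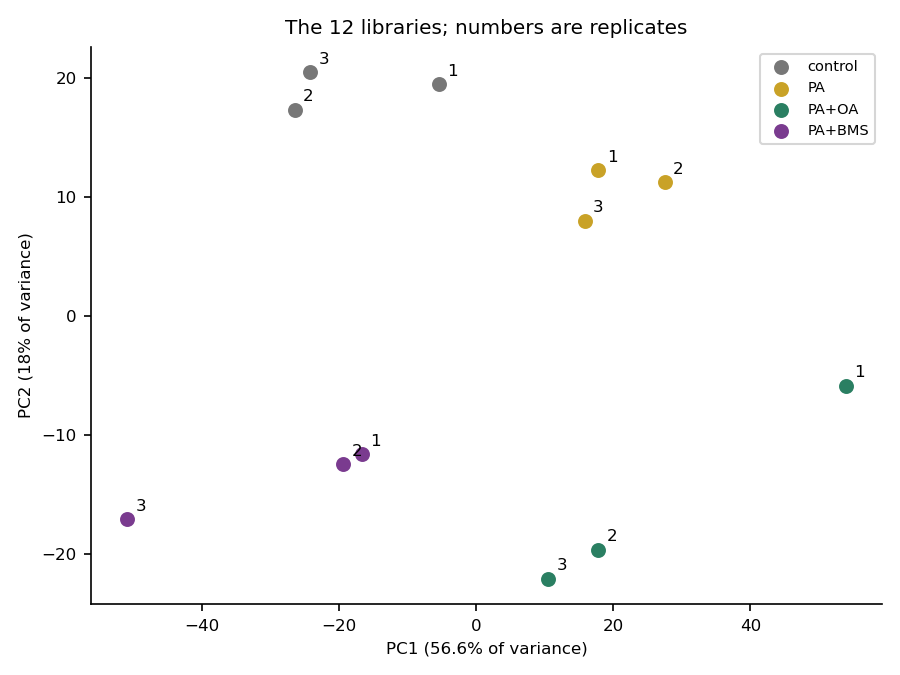
First and second principal components of log2(FPKM + 1) over the 11294 tested genes, 1 point per library, coloured by group and numbered by replicate. The first component holds 56.6% of the variance, with replicate 1 of PA+OA (54.0) and replicate 3 of PA+BMS (-51.0) at its ends.

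**Figure D2:**
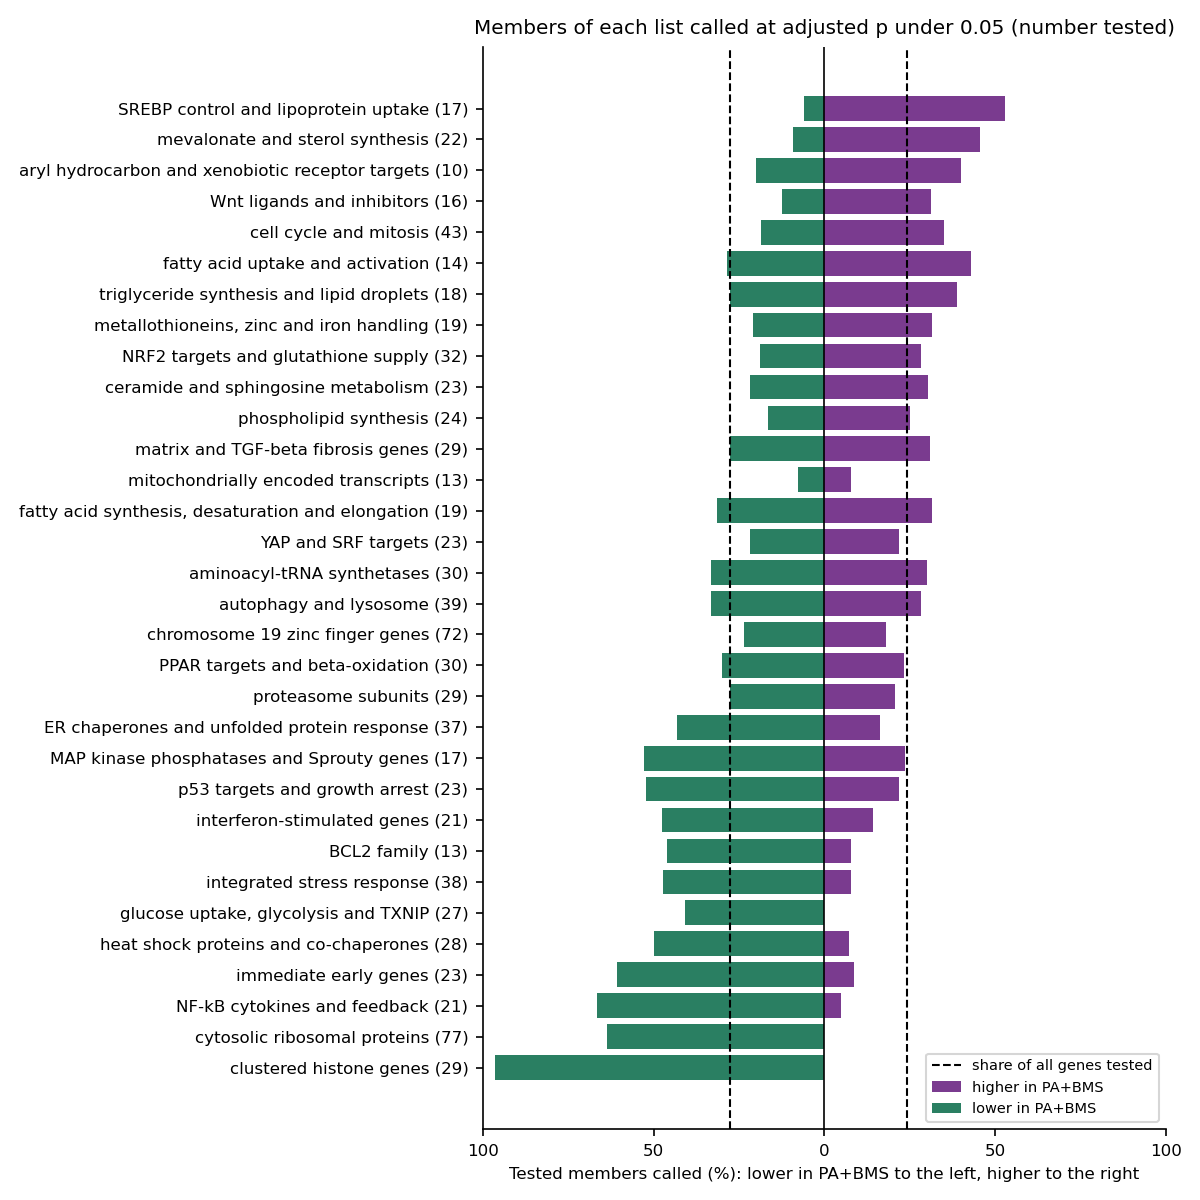
Share of each list's tested members called at an adjusted p under 0.05, with those lower in PA+BMS drawn to the left and those higher to the right, for lists with at least 10 tested members (numbers tested in parentheses). Dashed lines mark the shares over all 11294 tested genes, 27.7% lower and 24.1% higher. Bars count members that passed the filter only through 1 group and so had to differ, among them 8 of 29 clustered histones. Of the other 21 histones 95.2% were lower.

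Members called in the same direction under all 4 of those alternatives, higher and lower, numbered 0 and 7 of 28 for heat shock genes, 1 and 13 of 37 for ER genes and 2 and 11 of 38 for the integrated stress response. They numbered 0 and 22 of 29 for clustered histones (15 lower of the 21 not let in only through PA+OA), 8 and 0 of 22 for sterol synthesis and 4 and 0 of 17 for SREBP control. For NF-kB cytokines the numbers were 0 and 9 of 21 and for ribosomal proteins 0 and 2 of 77, beside 5.64% higher and 7.18% lower among all genes. Of members not let in only through PA+OA, 6 of 27 heat shock genes and 8 of 20 NF-kB cytokine genes were lower under all 4. Lists were written by hand from known pathway members, except that histone and zinc finger genes were taken by symbol.

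Heat shock genes held the largest falls. HSPA6, an HSP70 chaperone made almost wholly under stress (ENSG00000173110, chromosome 1, 161524540 to 161526910), was at 28.8, 21.8 and 23.2 FPKM in PA+OA replicates 1, 2 and 3 and at 0.266, 0.223 and 0.128 in PA+BMS, where control libraries lay at 0.347 to 4.56 and PA libraries at 0.707 to 0.865. All 3 PA+OA libraries were above every other library of the series and all 3 PA+BMS libraries below every other (log2 difference -4.40, SE 0.38, adjusted p = 2.93e-05). HSPA1A, the main inducible HSP70 (ENSG00000204389, chromosome 6, 31815464 to 31817946), was at 521, 495 and 526 FPKM in PA+OA and 34.8, 29.7 and 28.6 in PA+BMS, 16.6-fold lower as a ratio of group means, with 65.1 to 212 in control and 82.2 to 98.9 in PA (log2 difference -4.01, SE 0.33, adjusted p = 2.03e-05). Its near-identical copy HSPA1B read 280.1, 261 and 283 against 24.6, 22.1 and 24.3 (log2 difference -3.48), and how reads were split between the 2 genes is uncertain. DNAJB1, an HSP40 co-chaperone of HSP70, was at 423, 343 and 348 in PA+OA and 71.7, 68.9 and 72.8 in PA+BMS (log2 difference -2.36, SE 0.21, adjusted p = 3.93e-05), and overlaps the expressed gene TECR. BAG3, an HSP70 partner in selective autophagy, was at 102, 106 and 119 against 29.7, 29.9 and 24.0 (log2 difference -1.93, SE 0.18, adjusted p = 3.97e-05). In each of these genes the 3 libraries of one group did not overlap those of the other, where 32.2% of all genes were lower without overlap. HSPA6, HSPA1A, HSPA1B and DNAJB1 are among the largest falls, which were taken only from genes without overlap. HSPA1A, HSPA1B, HSPA6 and DNAJB1 together took 0.30%, 0.329% and 0.347% of reads in the 3 PA+OA libraries and 0.0465%, 0.0436% and 0.0436% in the 3 PA+BMS libraries. In these bulk libraries, fewer cells that make an RNA and less RNA per cell cannot be told apart.

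Of the heat shock list, 2 of 28 tested members (1 let in only through PA+OA) were higher (7.14%) and 14 lower (50.0%) in PA+BMS, where all genes gave 24.1% and 27.7% (median log2 difference -0.43). The median over all genes was -0.026. HSPA8, the constitutive HSP70, was lower (541, 583 and 547 against 296, 317 and 333 FPKM, log2 difference -0.82, SE 0.16, adjusted p = 0.00280), and HSPD1, the mitochondrial HSP60, was higher in the fit of 12 libraries (108, 134 and 155 against 164, 166 and 230.0, log2 difference 0.49, SE 0.18, adjusted p = 0.0416). Heat shock genes higher and lower numbered 0 and 10 with only the 6 libraries, 0 and 13 without both libraries and 0 and 16 with the trend removed. These numbered 5 and 8 with library totals set equal, 4 and 9 with quantile normalization and 5 and 10 with voom on reads. Heat shock genes higher numbered 1 without PA+OA replicate 3, or without control replicate 2, or without any 1 of the 3 PA libraries, 0 without PA+OA replicate 1 or 2, or without PA+BMS replicate 3. HSPD1 differed by 0.20 (adjusted p = 0.362) without both libraries, 0.29 (adjusted p = 0.110) with the trend removed, 0.09 (adjusted p = 0.656) with the trend removed and both left out and 0.49 (adjusted p = 0.106) with only the 6 libraries. HSPA8 differed by -0.27 (adjusted p = 0.339) with quantile normalization. The call of HSPD1 was also lost in 7 of 12 fits that each left out 1 library, those without PA+BMS replicate 3, control replicate 2, any PA library or PA+OA replicates 1 or 2 (highest adjusted p = 0.164).

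The promoter of HSPA6 is shown because this gene had the largest fall and its window holds the pattern bound by heat shock factors. In the 250 bases before each annotated start (RefSeq, GRCh38.p14), the heat shock element was searched on both strands as GAA, TTC and GAA with 2 free bases between each, and 155 of 35116 windows in the table hold it (0.441%). Among the 26 heat shock members with a window, 7 hold it, of which HSPA6 and HSPA8 were lower, HSPD1 was higher and HSP90AA1, HSP90AB1, DNAJB6 and CHORDC1 were not called, while 1 of the 19 members without it was higher and 10 were lower. A match describes letters and shows no binding, and a window without one says only that these letters are not in it. The window of HSPA6 is chr1:161524290-161524539, plus strand, and capitals mark the match, 74 to 62 bases before the start, found on the opposite strand.
HSPA6: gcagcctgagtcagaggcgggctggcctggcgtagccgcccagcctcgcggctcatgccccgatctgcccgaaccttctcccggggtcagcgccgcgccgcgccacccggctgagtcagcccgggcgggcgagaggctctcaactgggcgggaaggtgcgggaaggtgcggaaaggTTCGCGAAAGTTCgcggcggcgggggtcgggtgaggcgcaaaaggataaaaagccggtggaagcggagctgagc

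In the unfolded protein response more genes were lower than higher with BMS-309403. HSPA5, the ER chaperone BiP (ENSG00000044574, chromosome 9, 125234853 to 125241330), was at 445, 653 and 590.2 FPKM in PA+OA and 184, 200.3 and 193 in PA+BMS (log2 difference -1.52, SE 0.15, adjusted p = 6.83e-05), with 128 to 162 in control and 168 to 173 in PA. HERPUD1, a membrane protein of ER-associated degradation (ENSG00000051108, chromosome 16, 56932048 to 56944863), was at 192, 186 and 202 against 37.8, 36.2 and 26.5 (log2 difference -2.51, SE 0.20, adjusted p = 1.45e-05), with 11.3 to 20.6 in control and 38.2 to 42.9 in PA, and overlaps the noncoding AC012181.1 and AC012181.2. For both genes PA+OA stood above all other libraries of the series, and PA+BMS lay closer to PA than to PA+OA. DNAJB9, a co-chaperone of BiP, was at 22.4, 23.4 and 23.5 in PA+OA and 4.93, 5.91 and 5.36 in PA+BMS (log2 difference -1.91, SE 0.10, adjusted p = 3.42e-07). MANF, a secreted ER stress protein, was at 40.3, 40.8 and 37.5 against 16.3, 16.0 and 12.7 (log2 difference -1.35, SE 0.11, adjusted p = 1.75e-05). FICD, which modifies BiP, was at 6.18, 8.56 and 7.83 against 2.28, 1.93 and 1.80 (log2 difference -1.50, SE 0.13, adjusted p = 3.59e-05). The groups did not overlap in any of these 5 genes, where 32.2% of all genes were lower without overlap. HERPUD1 is among the largest falls, which were taken only from genes without overlap. XBP1, the factor activated by IRE1, differed by -0.98 (SE 0.11, adjusted p = 0.000159), the chaperone calreticulin CALR by -0.87 (SE 0.15, adjusted p = 0.00191), and SDF2L1, a member of a BiP complex, by -1.31 (SE 0.20, adjusted p = 0.000849).

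Over the list, 6 of 37 tested members were higher (16.2%) and 16 lower (43.2%) in PA+BMS, where all genes gave 24.1% and 27.7% (median log2 difference -0.34). The ER chaperones HSP90B1 (GRP94) and PDIA6, a protein disulfide isomerase, were not called, at 67.0, 91.4 and 104 against 87.4, 88.6 and 131 FPKM and 69.5, 75.3 and 68.5 against 65.3, 66.3 and 65.3, and their signs turn with the settings. CANX, calnexin, was higher in the fit of 12 libraries (106, 144 and 156 against 169.8, 172 and 248, log2 difference 0.53, SE 0.19, adjusted p = 0.0346), with PA+BMS replicate 3 as its highest library. ER genes higher and lower numbered 1 and 14 with only the 6 libraries, 1 and 19 without both libraries and 2 and 20 with the trend removed. ER genes higher numbered 2 without PA+OA replicate 1, 1 without PA+BMS replicate 3. CANX differed by 0.19 (adjusted p = 0.326) without both libraries, 0.19 (adjusted p = 0.187) with the trend removed, 0.02 (adjusted p = 0.897) with the trend removed and both left out and 0.53 (adjusted p = 0.102) with only the 6 libraries. CALR differed by -0.38 with the trend removed. SDF2L1 differed by -0.54 with the trend removed. The median of the list was -0.02 with library totals set equal, when that of all genes was 0.24.

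**Figure D3:**
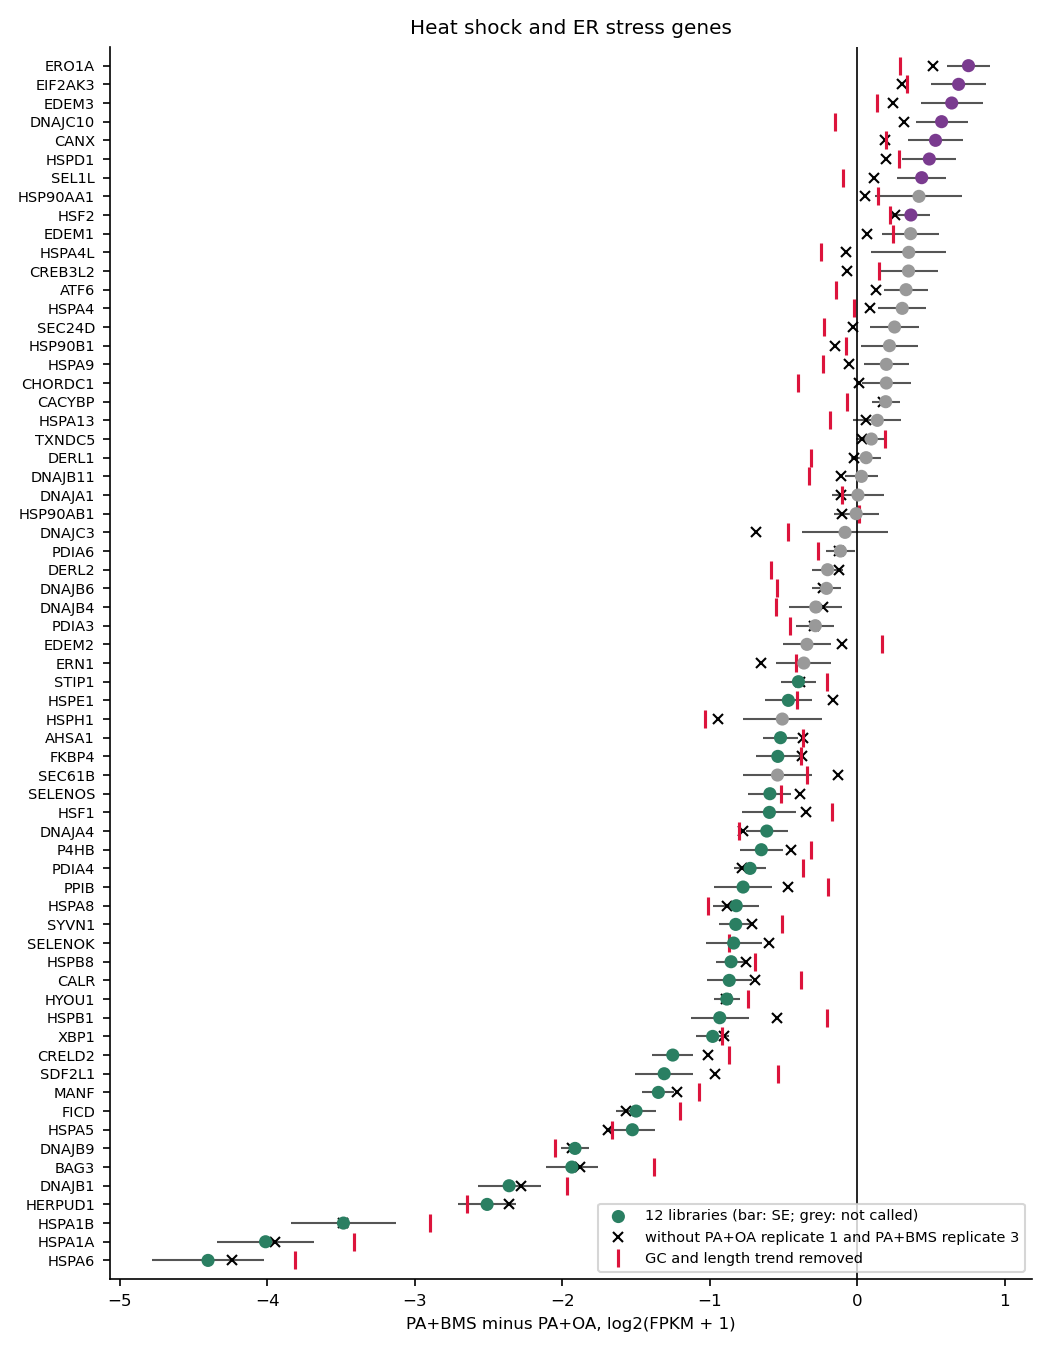
Log2 difference, PA+BMS minus PA+OA, of each tested member of the heat shock and ER lists, with bars of 1 SE from the fit of 12 libraries (purple called higher, green called lower, grey not called), crosses without both libraries that stand apart, and red ticks with the GC and length trend removed. HSPA6, HSPA1A, HSPA1B, HERPUD1 and DNAJB1 lie at the low end under all 3 settings.

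Windows of 3 members are printed because they carry the ER stress element, a composite site of NF-Y with ATF6, or its short form. On both strands the element was searched as CCAAT and CCACG 9 bases apart, found in 26 of 35116 windows (0.0740%), and the short form as ATTGG and CCACG 1 base apart, found in 18 (0.0513%). Of 34 ER members with a window, 8 hold the long form, where HSPA5, CALR, CRELD2, XBP1 and FICD were lower, CANX was higher and HSP90B1 and PDIA6 were not called. Of the 26 members without it, 5 were higher and 11 lower. The short form occurs in 3, HYOU1, SDF2L1 and HERPUD1, all lower (log2 differences -0.88, -1.31 and -2.51). In the fit of 12 libraries, members with the long form were thus not all called lower. The higher call of CANX was lost in several settings given above. HSP90B1 was called lower with the trend removed and both libraries left out (-0.30, adjusted p = 0.0450). Whether the letters bear on direction was not tested. Capitals mark the match, which ends 48 bases before the start in HSPA5 (chr9:125241344-125241593, minus strand), 107 in HERPUD1 (chr16:56931892-56932141, plus strand) and 133 in CANX (chr5:179698679-179698928, plus strand). These starts are of RefSeq. The HERPUD1 window runs past the gene start given above, which is of GENCODE.
HSPA5: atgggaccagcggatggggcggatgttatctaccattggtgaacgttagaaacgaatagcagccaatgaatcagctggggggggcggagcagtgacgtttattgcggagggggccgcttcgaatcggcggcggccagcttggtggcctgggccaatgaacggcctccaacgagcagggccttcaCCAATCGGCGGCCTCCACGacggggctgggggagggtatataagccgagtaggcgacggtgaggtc
HERPUD1: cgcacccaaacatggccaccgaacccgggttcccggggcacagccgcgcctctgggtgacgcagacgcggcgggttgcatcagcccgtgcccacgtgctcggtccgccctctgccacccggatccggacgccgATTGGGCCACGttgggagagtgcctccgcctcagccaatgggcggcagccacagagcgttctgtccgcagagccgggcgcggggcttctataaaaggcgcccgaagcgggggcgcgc
CANX: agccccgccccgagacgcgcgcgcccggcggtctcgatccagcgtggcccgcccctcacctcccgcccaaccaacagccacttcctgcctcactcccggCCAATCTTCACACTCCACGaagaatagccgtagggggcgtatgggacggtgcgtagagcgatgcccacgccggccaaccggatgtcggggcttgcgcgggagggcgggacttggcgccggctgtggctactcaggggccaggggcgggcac

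In the integrated stress response, too, more genes were lower than higher. DDIT3, which encodes the factor CHOP (ENSG00000175197, chromosome 12, 57516588 to 57521737), was at 113, 122 and 103 FPKM in PA+OA and 35.9, 33.7 and 20.0 in PA+BMS (log2 difference -1.92, SE 0.41, adjusted p = 0.00464), with 2.43 to 14.0 in control and 21.0 to 23.7 in PA. PA+BMS replicates 1 and 2 lay above every PA library, and replicate 3, which stands apart, lay near them. All 3 were closer to PA than to PA+OA. TRIB3, a pseudokinase induced by CHOP, was at 648, 388 and 401 against 187, 176 and 133 (log2 difference -1.50, SE 0.24, adjusted p = 0.00131), with PA+OA replicate 1 far above its group. GDF15, a stress cytokine, was at 359, 238 and 243 against 94.0, 89.3 and 46.7 (log2 difference -1.89, SE 0.37, adjusted p = 0.00300). The amino acid enzyme ASNS, which makes asparagine, was at 5.29, 6.10 and 6.58 against 2.17, 2.79 and 2.15 (log2 difference -1.05, SE 0.11, adjusted p = 0.000107). PCK2, a mitochondrial enzyme that makes phosphoenolpyruvate, was at 142, 88.4 and 86.4 against 41.7, 40.6 and 27.9 (log2 difference -1.48, SE 0.20, adjusted p = 0.000459). The hormone gene FGF21 was at 18.0, 12.7 and 9.71 against 3.51, 3.05 and 2.80 (log2 difference -1.78). CDKN1A, the cell cycle inhibitor p21, was at 317, 232 and 217 against 104, 96.6 and 69.1 (log2 difference -1.50, SE 0.20, adjusted p = 0.000443). Among the list's higher members, VLDLR, a lipoprotein receptor, was at 0.996, 1.42 and 1.40 in PA+OA and 3.52, 3.96 and 4.11 in PA+BMS (log2 difference 1.10, SE 0.11, adjusted p = 8.86e-05). The 2 groups did not overlap in any of these 8 genes, nor in 60.8% of all genes.

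CHAC1, which degrades glutathione, was at 194, 125 and 126 FPKM in PA+OA and 63.5, 61.4 and 40.3 in PA+BMS, with no overlap, yet was not called (log2 difference -1.41, SE 0.65, adjusted p = 0.0843), where control libraries spread from 2.04 to 33.4. It was called in the fit of only the 6 libraries (adjusted p = 0.0160). ATF3, a stress-induced repressor, was at 120.5, 129 and 117 against 66.7, 69.9 and 46.3 (log2 difference -1.01, SE 0.26, adjusted p = 0.0102). In all, 3 of 38 tested members were higher (7.89%) and 18 lower (47.4%) in PA+BMS, where all genes gave 24.1% and 27.7% (median log2 difference -0.66). Stress response genes higher and lower numbered 2 and 12 without both libraries, 3 and 23 in the 4 other libraries alone and 3 and 16 with the trend removed. Counts of both numbered 1 and 9 with the trend removed and both left out, 8 and 12 with library totals set equal, 8 and 13 with quantile normalization and 7 and 15 with voom on reads. ATF3 differed by -0.83 (adjusted p = 0.0700) without both libraries. TRIB3 differed by -0.96, GDF15 by -1.25, FGF21 by -1.14, CDKN1A by -0.96 and VLDLR by 0.64 with the trend removed. ATF3 differed by -0.67 (adjusted p = 0.0508) with library totals set equal. ATF3 differed by -0.59 (adjusted p = 0.0875) with quantile normalization. DDIT3 differed by -1.47 (adjusted p = 0.0578), ATF3 by -0.77 (adjusted p = 0.112) and GDF15 by -1.05 (adjusted p = 0.0516) with the trend removed and both left out. ASNS is shown for its C/EBP-ATF element, searched as TGATGNAA on both strands and held by 1104 of 35116 windows (3.14%), among them those of 6 of 31 members, ATF3, ASNS and FGF21 (lower) and CHAC1, CEBPG and JDP2 (not called). Of the 25 members without it, 2 were higher and 13 lower. In the ASNS window (chr7:97872409-97872658, minus strand) the match in capitals lies 68 to 61 bases before the start.
ASNS: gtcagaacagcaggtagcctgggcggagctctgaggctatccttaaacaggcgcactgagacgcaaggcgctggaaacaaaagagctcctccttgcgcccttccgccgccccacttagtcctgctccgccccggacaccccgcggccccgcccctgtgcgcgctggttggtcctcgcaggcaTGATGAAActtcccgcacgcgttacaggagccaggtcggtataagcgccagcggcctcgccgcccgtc

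**Figure D4:**
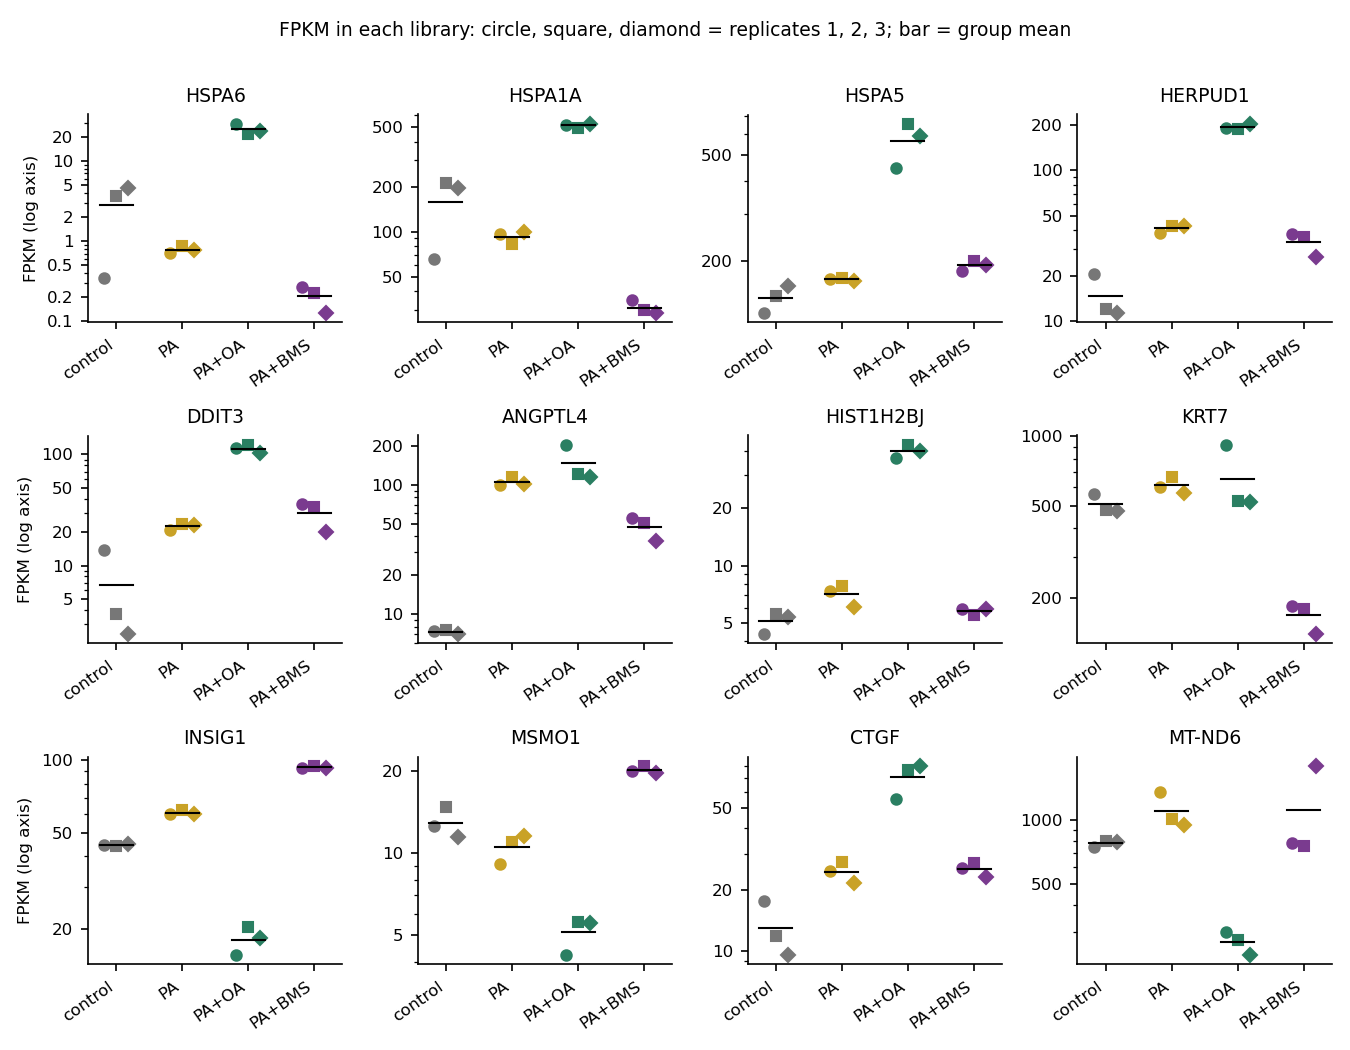
FPKM of 12 genes in every library on logarithmic axes, by group, with circle, square and diamond for replicates 1, 2 and 3 and a bar at the group mean. In the stress genes HSPA6, HSPA1A, HSPA5, HERPUD1 and DDIT3 and in HIST1H2BJ the 3 PA+OA libraries lie above all others, and in INSIG1 and MSMO1 the 3 PA+BMS libraries do.

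Most clustered histone genes that were tested were lower in PA+BMS. Of 90 on the list, 61 were not tested and 8 were let in only through PA+OA, so they had to differ. Of the other 21, 20 were lower (95.2%) and 0 higher, where all genes gave 27.7% and 24.1%. HIST1H2BJ, an H2B gene (ENSG00000124635, chromosome 6, 27125897 to 27132750), was at 36.9, 43.2 and 40.1 FPKM in PA+OA and 5.93, 5.52 and 5.94 in PA+BMS (log2 difference -2.59, SE 0.12, adjusted p = 2.05e-07), with 4.38 to 5.59 in control and 6.04 to 7.81 in PA. HIST1H2AC, an H2A gene, was at 54.7, 81.4 and 67.1 against 12.7, 12.5 and 8.34 (log2 difference -2.50, SE 0.18, adjusted p = 8.62e-06). In both, PA+OA alone stood apart and PA+BMS lay at the level of control and PA. HIST1H2BK was at 348, 322 and 369 against 111, 109 and 81.7 (log2 difference -1.79). HIST1H4I was at 36.1, 36.0 and 31.4 against 10.5, 9.66 and 7.67 (-1.80), and HIST1H2BO at 15.2, 19.4 and 18.1 against 4.33, 4.28 and 1.19 (-2.23). Over all 29 tested, 28 were lower. Histone genes higher and lower numbered 0 and 25 without both libraries and 0 and 22 with the trend removed. The linker histones outside the clusters were lower too, H1F0 at 287, 332 and 271 against 62.8, 66.0 and 56.3 (log2 difference -2.25, SE 0.12, adjusted p = 5.84e-07). H1FX was at 774, 458 and 442 against 156, 136 and 91.1 (log2 difference -2.11, SE 0.24, adjusted p = 0.000157). HIST1H2BK differed by -1.15 and H1FX by -1.35 with the trend removed. Most histone messages lack a poly(A) tail, and these libraries were made by poly-T selection, so the values are of RNA that passed that step, 0.0473%, 0.0680% and 0.0661% of reads in PA+OA and 0.0200%, 0.0198% and 0.0142% in PA+BMS. Whether total histone RNA differed was not tested.

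Genes of cholesterol synthesis and its control differed the other way and included the largest rise, that of INSIG1. INSIG1, the sterol-regulated ER anchor of SREBP (ENSG00000186480, chromosome 7, 155297776 to 155310235), was at 15.7, 20.4 and 18.3 FPKM in PA+OA and 93.2, 94.6 and 92.4 in PA+BMS (log2 difference 2.31, SE 0.11, adjusted p = 2.05e-07), with 44.3 to 44.9 in control and 59.9 to 62.1 in PA. Of the 4 groups PA+OA was the lowest and PA+BMS the highest. MSMO1, a methylsterol oxidase, was at 4.24, 5.60 and 5.55 against 20.0, 20.8 and 19.7 (log2 difference 1.80, SE 0.13, adjusted p = 8.62e-06). IDI1, isopentenyl diphosphate isomerase, was at 13.5, 15.8 and 15.3 against 31.2, 31.9 and 32.0 (log2 difference 1.04, SE 0.11, adjusted p = 0.000107). HMGCS1, an early enzyme of the mevalonate pathway, was at 2.20, 3.43 and 3.74 against 6.77, 6.5 and 8.85 (log2 difference 1.03, SE 0.19, adjusted p = 0.00259). CYP51A1, lanosterol demethylase, was at 1.14, 1.59 and 1.5 against 3.16, 2.91 and 3.81 (log2 difference 0.83, SE 0.12, adjusted p = 0.000642). For each of these genes every PA+BMS library was above every PA+OA library, as for 28.6% of all genes. INSIG1 and MSMO1 are among the largest rises, which were taken only from genes without overlap.

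Of the mevalonate and sterol list, 10 of 22 tested members were higher (45.5%) and 2 lower (9.09%) in PA+BMS, where all genes gave 24.1% and 27.7% (median log2 difference 0.24), and of the list of SREBP control and lipoprotein uptake, 9 of 17 were higher (52.9%) and 1 lower (5.88%; median 0.39). The latter's higher members include RNF145, a sterol-responsive ubiquitin ligase (4.23, 6.64 and 6.21 against 11.7, 12 and 12.4, log2 difference 0.98), and STARD4, a cholesterol carrier (1.13, 1.39 and 1.30 against 3.42, 2.80 and 4.32, 0.98). Sterol genes higher and lower numbered 11 and 0 without both libraries, 13 and 0 with the trend removed and 15 and 0 with library totals set equal. Sterol genes lower numbered 4 without PA+OA replicate 3, 1 without PA+BMS replicate 2 or 3, or without any 1 of the 3 control libraries, or without any 1 of the 3 PA libraries, 0 without PA+OA replicate 1. SREBP list genes higher and lower numbered 4 and 0 with only the 6 libraries, 8 and 0 without both libraries and 8 and 2 in the 4 other libraries alone. Higher and lower members numbered 8 and 0 with the trend removed. SREBP list genes lower numbered 2 without PA+OA replicate 2 or 3, 0 without PA+OA replicate 1, or without any 1 of the 3 PA+BMS libraries. STARD4 differed by 0.56 with the trend removed. The sterol element CACCCCAC was in none of the 17 windows of sterol list members, 7 of which were higher and 2 lower, and in 854 of 35116 windows overall (2.43%). Of the list of oxysterol receptor (LXR) targets, whose products export cholesterol, 5 of 14 members were tested, and the receptors themselves, NR1H2 (53.4, 30.6 and 29.1 against 20.4, 17.4 and 15.3, log2 difference -1.0, SE 0.20, adjusted p = 0.00340) and NR1H3 (15.1, 9.25 and 8.15 against 5.85, 5.31 and 5.08, log2 difference -0.84, SE 0.20, adjusted p = 0.00671), were lower. Without both libraries that stand apart NR1H2 differed by -0.64 and NR1H3 by -0.56, and with the trend removed by -0.47 and -0.43. The call of NR1H3 was lost when both were done (adjusted p = 0.0917). LPCAT3, which remodels phospholipids (9.56, 6.5 and 6.97 against 7.16, 6.94 and 6.72, log2 difference -0.11, SE 0.13, adjusted p = 0.464), and SMPDL3A, a phosphodiesterase (0.534, 0.799 and 1.28 against 1.43, 1.78 and 0.987, log2 difference 0.36, SE 0.18, adjusted p = 0.112), were not called. Among members under the filter, named after their values were seen, ABCG1 was at 0.927, 0.734 and 0.621 FPKM in PA+OA and 0.111, 0.101 and 0.0741 in PA+BMS. APOE (79 reads in PA+OA against 29 in PA+BMS) and PLTP (77 against 37) were lower too. ABCA1 (1 against 4) and ABCG5 (1 against 3) went the other way with few reads.

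**Figure D5:**
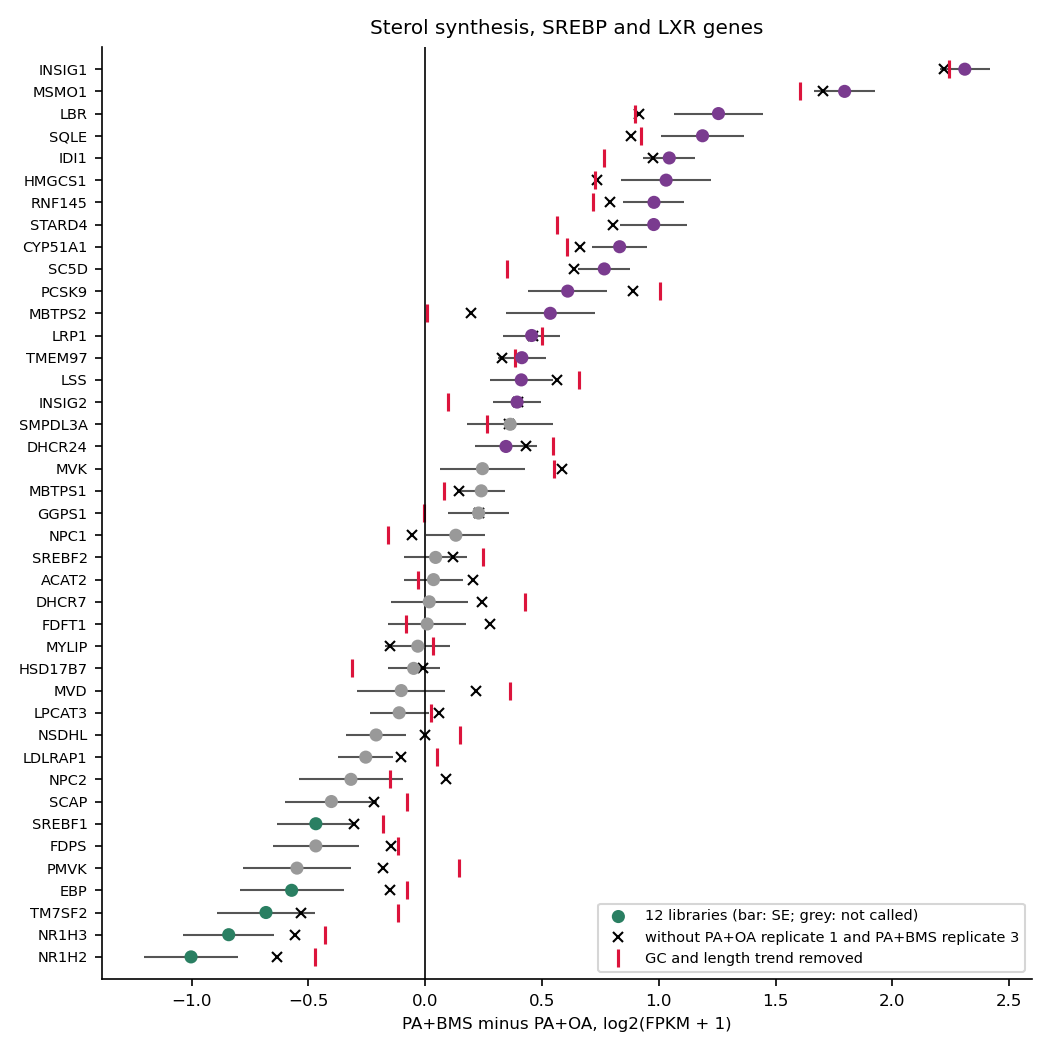
Log2 difference, PA+BMS minus PA+OA, of tested members of the sterol, SREBP and LXR lists, with 1 SE, drawn as for the heat shock and ER genes. INSIG1 and MSMO1 lie at the high end under all 3 settings, and the members at the low end lie closer to 0 once the trend is removed.

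Genes of fatty acid handling were mixed. FABP4, the known target of BMS-309403 (ENSG00000170323, chromosome 8, 81478419 to 81483263), had 1 read in the 6 libraries and 4 in all 12, where 3 reads would be worth at most 0.142 FPKM. FABP1, the liver form, had no read, and the lipid droplet gene PLIN2 had 7 reads there. These genes were not tested. FABP5 was at 9.97, 8.21 and 8.48 FPKM in PA+OA and 9.98, 10.9 and 10.7 in PA+BMS and FABP3 at 27.4, 18.3 and 17.7 against 18.5, 16.9 and 15.5, neither called (log2 difference 0.22, SE 0.13, adjusted p = 0.152, and log2 difference -0.28, SE 0.15, adjusted p = 0.133). FABP5 was called with library totals set equal (0.53, adjusted p = 0.00544), and FABP3 changed sign there and with the trend removed. Of 14 genes on the family's list, 3 were tested, and only CRABP2, a retinoic acid carrier, was called (10.2, 7.29 and 6.47 against 4.10, 4.36 and 1.97, log2 difference -1.03, SE 0.22, adjusted p = 0.00427). Without both libraries that stand apart it differed by -0.59 and with the trend removed by -0.41, a call lost when both were done (adjusted p = 0.201).

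ANGPTL4, a secreted inhibitor of lipoprotein lipase and a PPAR target (ENSG00000167772, chromosome 19, 8363289 to 8374373), was at 203, 121 and 115 FPKM in PA+OA and 55.0, 51.0 and 36.6 in PA+BMS (log2 difference -1.57, SE 0.20, adjusted p = 0.000384), with 7.04 to 7.56 in control and 99.4 to 115 in PA. PDK4, also a PPAR target, which restrains pyruvate oxidation (ENSG00000004799, chromosome 7, 95583499 to 95596491), differed in the opposite direction, at 11.8, 21.9 and 27.2 against 43.3, 43.1 and 69.7 (log2 difference 1.35, SE 0.26, adjusted p = 0.00265), with 22.1 to 26.5 in control and 35.8 to 43.3 in PA. The groups did not overlap for either gene, nor for 60.8% of all genes, and these 2 members of the list were split. PDK4 is among the largest rises, which were taken only from genes without overlap. CPT1A, the entry enzyme of mitochondrial oxidation, was at 30.0, 36.4 and 38.9 against 40.9, 42.0 and 50.6 (log2 difference 0.34, SE 0.13, adjusted p = 0.0468), and its call was lost in every fit that left out 1 library except those without replicate 3 of PA+OA or replicate 1 of PA+BMS (adjusted p up to 0.170). PPARA itself was at 0.494, 0.662 and 0.698 against 1.28, 1.17 and 1.49 (log2 difference 0.51, SE 0.11, adjusted p = 0.00419). The peroxisomal HSD17B4 was at 4.70, 5.45 and 5.19 against 7.46, 8.10 and 8.99 (log2 difference 0.59, SE 0.12, adjusted p = 0.00439). Of the list, 7 of 30 tested members (1 let in only through PA+OA and 1 let in only through PA+BMS) were higher (23.3%) and 9 lower (30.0%) in PA+BMS, where all genes gave 24.1% and 27.7% (median log2 difference -0.02). PPAR list genes higher and lower numbered 4 and 2 with only the 6 libraries, 5 and 3 without both libraries and 7 and 7 in the 4 other libraries alone. Both numbered 4 and 3 with the trend removed, 2 and 1 with the trend removed and both left out, 14 and 5 with library totals set equal, 11 and 8 with quantile normalization and 12 and 6 with voom on reads. PPAR list genes lower numbered 3 without PA+BMS replicate 3. PDK4 differed by 0.80 and CPT1A by 0.14 (adjusted p = 0.349) without both libraries. ANGPTL4 differed by -0.92, PPARA by 0.16 (adjusted p = 0.168) and HSD17B4 by 0.05 (adjusted p = 0.724) with the trend removed. PPARA differed by 0.26 (adjusted p = 0.0773), HSD17B4 by 0.21 (adjusted p = 0.140) and CPT1A by 0.20 (adjusted p = 0.115) with the trend removed and both left out. CPT1A differed by 0.34 (adjusted p = 0.136) with only the 6 libraries.

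SCD, the desaturase that makes oleate from its saturated precursor (ENSG00000099194, chromosome 10, 100347124 to 100364834), was at 148, 202 and 205 FPKM in PA+OA and 279, 284 and 354 in PA+BMS (log2 difference 0.73, SE 0.16, adjusted p = 0.00585), with 223 to 249 in control and 284 to 358 in PA. ME1, malic enzyme, was at 12.1, 15.8 and 17.3 against 24.0, 26.2 and 31.5 (log2 difference 0.82, SE 0.15, adjusted p = 0.00236). HACD3, of very long chain synthesis, was at 11.6, 14.7 and 13.7 against 18.7, 20.5 and 25.3 (log2 difference 0.65, SE 0.14, adjusted p = 0.00439). MLXIPL, the carbohydrate-responsive factor ChREBP, was at 2.11, 1.33 and 1.52 against 0.514, 0.732 and 0.764 (log2 difference -0.66, SE 0.13, adjusted p = 0.00321). Of the synthesis list, 6 of 19 tested members (1 let in only through PA+OA) were higher (31.6%) and 6 lower (31.6%) in PA+BMS, where all genes gave 24.1% and 27.7% (median log2 difference 0.21). Fatty acid synthesis genes higher and lower numbered 3 and 2 with only the 6 libraries, 4 and 1 without both libraries and 7 and 4 in the 4 other libraries alone. The pair of counts numbered 7 and 0 with the trend removed, 11 and 2 with library totals set equal, 8 and 3 with quantile normalization and 11 and 4 with voom on reads. Fatty acid synthesis genes lower numbered 3 without PA+OA replicate 1, or without PA+BMS replicate 3. SCD differed by 0.47 without both libraries. HACD3 differed by 0.23 (adjusted p = 0.0558) and MLXIPL by -0.21 (adjusted p = 0.196) with the trend removed. HACD3 differed by 0.23 (adjusted p = 0.144) and MLXIPL by -0.34 (adjusted p = 0.111) with the trend removed and both left out. In triglyceride handling, 7 of 18 tested members were higher (38.9%) and 5 lower (27.8%) in PA+BMS, where all genes gave 24.1% and 27.7% (median log2 difference 0.07). LPIN1, a phosphatidate phosphatase, was higher (1.38, 3.14 and 3.11 against 6.02, 6.08 and 7.48, log2 difference 1.13, SE 0.18, adjusted p = 0.00127), whereas DGAT1, the last enzyme of triglyceride synthesis (42.0, 27.6 and 27.3 against 17.0, 16.8 and 13.3, log2 difference -0.97, SE 0.16, adjusted p = 0.00155), the lipase PNPLA2 (91.3, 55.8 and 62.3 against 39.7, 36.3 and 26.9, log2 difference -0.99, SE 0.19, adjusted p = 0.00300) and the monoglyceride lipase MGLL (5.88, 5.28 and 6.0 against 2.81, 2.94 and 3.39, log2 difference -0.73, SE 0.12, adjusted p = 0.00117) were lower. Triglyceride genes higher and lower numbered 3 and 4 with only the 6 libraries, 6 and 3 without both libraries and 6 and 6 in the 4 other libraries alone. They numbered 6 and 5 with the trend removed. Triglyceride genes higher numbered 4 without PA+BMS replicate 3. PNPLA2 differed by -0.62 without both libraries. DGAT1 differed by -0.46 and PNPLA2 by -0.45 with the trend removed.

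In uptake and activation, 6 of 14 tested members (1 let in only through PA+OA) were higher (42.9%) and 4 lower (28.6%) in PA+BMS, where all genes gave 24.1% and 27.7% (median log2 difference 0.17). MFSD2A, a lysophospholipid transporter, was lower (1.5, 1.35 and 1.37 against 0.303, 0.440 and 0.402 FPKM, log2 difference -0.80, SE 0.12, adjusted p = 0.000738), as was the acyl-CoA synthetase ACSL5 (5.65, 6.17 and 5.11 against 2.77, 3.20 and 3.71, log2 difference -0.65, SE 0.12, adjusted p = 0.00195). The related ACSL3 was higher (4.62, 6.40 and 7.84 against 10.7, 9.55 and 15.4, log2 difference 0.82, SE 0.19, adjusted p = 0.00641), as was the lipid transfer protein SCP2 (1.95, 2.12 and 2.02 against 3.30, 3.36 and 4.44, log2 difference 0.62, SE 0.11, adjusted p = 0.00223). The transporter gene CD36 did not exceed 0.103 FPKM in the 6 libraries and was not tested. Uptake genes higher and lower numbered 3 and 2 with only the 6 libraries, 4 and 2 without both libraries and 3 and 2 with the trend removed. These numbered 7 and 2 with library totals set equal. ACSL3 differed by 0.46 without both libraries. MFSD2A differed by -0.44, ACSL3 by 0.35 and SCP2 by 0.14 (adjusted p = 0.287) with the trend removed. ACSL3 differed by 0.22 (adjusted p = 0.120) and SCP2 by 0.25 (adjusted p = 0.0966) with the trend removed and both left out.

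More immediate early and inflammatory genes were called lower than higher in PA+BMS. ARC, an immediate early gene, was at 8.36, 6.41 and 7.44 FPKM in PA+OA and 1.38, 1.21 and 0.977 in PA+BMS (log2 difference -1.94, SE 0.12, adjusted p = 3.39e-06), with 0.172 to 0.397 in control and 1.51 to 1.88 in PA. KLF2, a zinc finger factor, was at 19.4, 13.5 and 17.9 against 5.24, 4.56 and 4.05 (log2 difference -1.66, SE 0.17, adjusted p = 7.67e-05). NR4A1, an orphan nuclear receptor, was at 27.0, 23.8 and 24.5 against 13.7, 12.7 and 11.8 (log2 difference -0.93, SE 0.12, adjusted p = 0.000284). The FOS family member FOSL1 was at 43.5, 29.7 and 33.6 against 17.2, 15.1 and 11.7 (log2 difference -1.22, SE 0.16, adjusted p = 0.000423). None of these genes overlapped between the groups, where 32.2% of all genes were lower without overlap. Of the immediate early list, 2 of 23 tested members were higher (8.70%) and 14 lower (60.9%) in PA+BMS, where all genes gave 24.1% and 27.7% (median log2 difference -0.53). Immediate early genes higher and lower numbered 0 and 12 with only the 6 libraries, 0 and 9 without both libraries and 1 and 16 in the 4 other libraries alone. Counts of both numbered 3 and 9 with the trend removed and 2 and 9 with library totals set equal. Immediate early genes higher numbered 1 without PA+OA replicate 1, or without PA+BMS replicate 3. KLF2 differed by -0.95 and FOSL1 by -0.56 with the trend removed. Of the MAP kinase phosphatase and Sprouty list, 4 of 17 tested members (2 let in only through PA+OA) were higher (23.5%) and 9 lower (52.9%) in PA+BMS, where all genes gave 24.1% and 27.7% (median log2 difference -0.55), led by PHLDA1, a pro-apoptotic feedback gene (18.2, 22.0 and 22.6 against 7.52, 7.75 and 8.56, log2 difference -1.29, SE 0.13, adjusted p = 8.17e-05), and the ERK phosphatases DUSP5 (31.5, 33.2 and 34.5 against 12.8, 12.6 and 10.7, -1.39) and DUSP6 (1.78, 3.08 and 3.06 against 0.702, 0.722 and 0.587, -1.10). SPRY4, an inhibitor of receptor kinase signalling, differed by -0.56 (1.79, 1.64 and 1.77 against 0.835, 0.858 and 0.860). DUSP6 and SPRY4 were the 2 let in only through PA+OA, so they had to be lower. Of the other 15 members 4 were higher and 7 lower (46.7%). Phosphatase and Sprouty genes higher and lower numbered 0 and 9 with only the 6 libraries, 1 and 8 without both libraries and 2 and 6 with the trend removed. Higher and lower members numbered 7 and 8 with library totals set equal. Phosphatase and Sprouty genes higher numbered 2 without PA+OA replicate 1, or without PA+BMS replicate 2, 0 without PA+BMS replicate 3. DUSP5 differed by -0.89 with the trend removed.

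Among NF-kB cytokines and feedback genes, 1 of 21 tested members (1 let in only through PA+OA) were higher (4.76%) and 14 lower (66.7%) in PA+BMS, where all genes gave 24.1% and 27.7% (median log2 difference -0.72). IL6, an acute phase cytokine (ENSG00000136244, chromosome 7, 22725884 to 22732002), was at 7.62, 10.5 and 9.08 FPKM in PA+OA and 2.44, 2.75 and 1.53 in PA+BMS (log2 difference -1.65, SE 0.19, adjusted p = 0.000171), with 1.39 to 2.19 in control and 3.18 to 5.07 in PA. CXCL8, a neutrophil chemokine, was at 8.38, 8.40 and 9.12 against 2.95, 2.77 and 2.86 (log2 difference -1.32, SE 0.19, adjusted p = 0.000667). IL1A, an alarmin, was at 4.29, 4.10 and 4.64 against 1.46, 1.41 and 1.45 (log2 difference -1.13, SE 0.11, adjusted p = 6.63e-05). IL11 was at 6.08, 5.17 and 4.72 against 1.76, 1.95 and 1.85 (log2 difference -1.14, SE 0.11, adjusted p = 6.63e-05). The chemokine CXCL3 was at 1.93, 2.43 and 2.12 against 0.503, 0.615 and 0.25 (log2 difference -1.12, SE 0.12, adjusted p = 0.000100). The PA+OA libraries were above all PA+BMS libraries in these 5 genes, as in 32.2% of all genes. CXCL3, let in only through PA+OA, had to be lower. For IL11 the PA libraries (8.86 to 9.59) were above both groups. Cytokine list genes higher and lower numbered 1 and 15 without both libraries and 1 and 12 with the trend removed. IL11 differed by -0.55 with the trend removed.

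OASL, an interferon-induced antiviral protein (ENSG00000135114, chromosome 12, 121019111 to 121039242), was at 109, 76.9 and 69.1 FPKM in PA+OA and 17.3, 15.9 and 14.8 in PA+BMS (log2 difference -2.31, SE 0.16, adjusted p = 5.33e-06), with 50.3 to 56.2 in control and 65.1 to 78.8 in PA, so PA+BMS was the lowest group. PA+BMS was also the lowest group for ISG15, a ubiquitin-like modifier (563, 312 and 315 against 114, 102 and 75.8, with 239.7 to 323 in control and 348 to 402 in PA, log2 difference -1.98, SE 0.23, adjusted p = 0.000180), and ISG20, an exonuclease (2.51, 1.88 and 1.80 against 0.488, 0.371 and 0.315, with 1.14 to 1.37 in control and 1.76 to 1.81 in PA, log2 difference -1.13, SE 0.11, adjusted p = 6.83e-05). IRF7, the factor that amplifies interferon induction, was at 14.9, 9.82 and 10.3 against 3.66, 3.57 and 2.09 (log2 difference -1.63, SE 0.19, adjusted p = 0.000191). Over the interferon list, 3 of 21 tested members (1 let in only through PA+OA) were higher (14.3%) and 10 lower (47.6%) in PA+BMS, where all genes gave 24.1% and 27.7% (median log2 difference -0.42). Interferon list genes higher and lower numbered 0 and 6 with only the 6 libraries, 1 and 6 without both libraries and 3 and 9 in the 4 other libraries alone. Both numbered 2 and 10 with the trend removed, 5 and 6 with library totals set equal and 4 and 6 with voom on reads. ISG15 differed by -1.22 and IRF7 by -0.96 with the trend removed.

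Of p53 targets and growth arrest genes, 5 of 23 tested members (1 let in only through PA+BMS) were higher (21.7%) and 12 lower (52.2%) in PA+BMS, where all genes gave 24.1% and 27.7% (median log2 difference -0.56), with CDKN1A described above. PLK3, a stress kinase, was at 18.5, 12.9 and 13.4 FPKM in PA+OA and 4.53, 4.54 and 3.14 in PA+BMS (log2 difference -1.65, SE 0.17, adjusted p = 7.15e-05). The nuclease AEN was at 31.2, 25.5 and 23.6 against 14.7, 13.4 and 10.5 (log2 difference -1.01, SE 0.14, adjusted p = 0.000537). CCNG1, cyclin G, was higher, at 13.4, 13.1 and 14.8 against 25.9, 25.8 and 35.8 (log2 difference 1.02, SE 0.15, adjusted p = 0.000826). Growth arrest genes higher and lower numbered 1 and 8 with only the 6 libraries, 1 and 8 without both libraries and 1 and 7 with the trend removed. The pair of counts numbered 8 and 8 with library totals set equal. Growth arrest genes higher numbered 2 without PA+BMS replicate 3, 1 without PA+OA replicate 1. Among cell cycle and mitosis genes, 15 of 43 tested members were higher (34.9%) and 8 lower (18.6%) in PA+BMS, where all genes gave 24.1% and 27.7% (median log2 difference 0.10). MKI67, the proliferation marker Ki-67 (ENSG00000148773, chromosome 10, 128096659 to 128126385), was at 4.16, 7.42 and 9.96 in PA+OA and 17.1, 16.0 and 36.8 in PA+BMS (log2 difference 1.54, SE 0.34, adjusted p = 0.00572), with 15.9 to 30.1 in control and 10.7 to 15.9 in PA. The mitotic kinase BUB1 was at 6.29, 7.05 and 8.04 against 13.4, 13.0 and 18.8 (log2 difference 0.97, SE 0.16, adjusted p = 0.00130). Cyclin A CCNA2 was at 15.4, 19.2 and 20.6 against 31.5, 33.0 and 41.0 (log2 difference 0.90, SE 0.15, adjusted p = 0.00144). Topoisomerase TOP2A was at 9.85, 10.2 and 12.2 against 19.6, 17.9 and 31.2 (log2 difference 0.99, SE 0.21, adjusted p = 0.00413). The checkpoint gene BUB1B was at 6.63, 7.72 and 10.1 against 13.7, 14.3 and 19.3 (log2 difference 0.88, SE 0.18, adjusted p = 0.00419). PA+OA was the lower of the 2 groups in all 5, and PA+BMS replicate 3 the highest library of the 6. Cell cycle genes higher and lower numbered 7 and 3 with only the 6 libraries, 11 and 4 without both libraries and 16 and 9 in the 4 other libraries alone. They numbered 15 and 6 with the trend removed and 21 and 4 with quantile normalization. Cell cycle genes lower numbered 5 without PA+BMS replicate 3. MKI67 differed by 0.87 without both libraries. BUB1 differed by 0.59 and TOP2A by 0.54 with the trend removed. MKI67 differed by 0.70 (adjusted p = 0.0519) and BUB1B by 0.48 (adjusted p = 0.0545) with the trend removed and both left out.

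The other largest rises were of genes on no list. TENT5A, a noncanonical poly(A) polymerase, was at 4.03, 6.09 and 7.69 FPKM in PA+OA and 15.1, 15.1 and 26.1 in PA+BMS (log2 difference 1.5, SE 0.24, adjusted p = 0.00114). The protocadherin PCDH7 was at 0.479, 1.18 and 1.18 against 3.83, 4.15 and 4.86 (log2 difference 1.46, SE 0.15, adjusted p = 7.67e-05). The Golgi protein GOLIM4 was at 3.69, 5.14 and 6.46 against 13.1, 11.4 and 22.9 (log2 difference 1.43, SE 0.23, adjusted p = 0.00135). The adhesion receptor ADGRA3 was at 1.09, 2.13 and 2.21 against 5.61, 6.33 and 6.87 (log2 difference 1.39, SE 0.17, adjusted p = 0.000237). The phospholipase-like PLCL2 was at 1.73, 2.38 and 2.75 against 5.83, 6.88 and 9.74 (log2 difference 1.35, SE 0.17, adjusted p = 0.000284). These 5 were picked only among genes without overlap between the groups. In each of them PA+OA replicate 1 was the lowest of the 6 libraries.

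Keratin markers of bile duct epithelium were lower in PA+BMS, and most markers of mature hepatocytes stayed under 1 FPKM. Of 12 bile duct markers 6 were tested, of which 3, all keratins, were lower, SOX4 was higher, and the other 2 were not called. KRT7, a keratin of bile ducts (ENSG00000135480, chromosome 12, 52232520 to 52252186), was at 917, 522 and 519 FPKM in PA+OA and 184, 179 and 139 in PA+BMS (log2 difference -1.91, SE 0.21, adjusted p = 0.000145), with 476 to 563 in control and 570.2 to 668 in PA. PA+BMS was the lowest of the 4 groups, and PA+OA replicate 1 stood above the rest of its group. The simple epithelial keratins KRT18 (409, 219 and 225 against 109, 96.5 and 98.2, log2 difference -1.42, SE 0.23, adjusted p = 0.00126) and KRT8 (413, 228 and 210.4 against 133, 125 and 133, log2 difference -1.05, SE 0.24, adjusted p = 0.00584), neighbours whose annotations overlap, were lower, and SOX4 was higher (2.63, 5.18 and 4.71 against 6.55, 6.77 and 9.83, log2 difference 0.77, SE 0.19, adjusted p = 0.00870). The summed level of the 12 bile duct markers, 6 of them under 1 FPKM in every library, of which the 3 keratins made up 90.2% to 98.6% in the 6 libraries, ranged from 987 to 1763 FPKM in PA+OA, 411 to 459 in PA+BMS, 941 to 1112 in control and 1064 to 1326 in PA. SOX9, a factor of bile duct cells that was not tested and is named after its values were seen, was at 0.453, 0.477 and 0.375 FPKM in PA+OA and 0.641, 0.571 and 0.563 in PA+BMS. CLDN7, an epithelial tight junction protein that overlaps ELP5, was at 30.5, 18.0 and 17.0 against 4.52, 4.29 and 3.76 (log2 difference -2.09, SE 0.18, adjusted p = 2.85e-05). SOX4 differed by 0.37 without both libraries and 0.77 (adjusted p = 0.0508) with only the 6 libraries. KRT18 differed by -0.93 with the trend removed.

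Of 25 hepatocyte markers 23 stayed under 1 FPKM in all 12 libraries, and ALB, APOB, CYP2B6, FABP1, FGA, FGB and HP had no read in the 6. Tested were HPD, of tyrosine breakdown, at 77.6, 48.7 and 45.1 FPKM in PA+OA and 32.4, 31.6 and 27.8 in PA+BMS (log2 difference -0.84, SE 0.18, adjusted p = 0.00491). CPS1, of the urea cycle, was at 50.4, 72.3 and 80.8 against 95.5, 104 and 139 (log2 difference 0.73, SE 0.19, adjusted p = 0.0111). HPD differed by -0.54 without both libraries, -0.26 (adjusted p = 0.0603) with the trend removed and -0.23 (adjusted p = 0.123) with the trend removed and both left out. CPS1 differed by 0.38 (adjusted p = 0.0796) without both libraries, 0.20 (adjusted p = 0.0924) with the trend removed, 0.12 (adjusted p = 0.362) with the trend removed and both left out and 0.73 (adjusted p = 0.0522) with only the 6 libraries. Of the marker lists of other cells, no endothelial or lymphocyte gene was tested, CSF1R was the only macrophage gene (1.91, 1.83 and 1.69 against 0.518, 0.607 and 0.528, log2 difference -0.86, SE 0.12, adjusted p = 0.000499), and the defining macrophage genes CD163, C1QA, C1QB and MARCO had no read. PDGFRB, a stellate cell receptor, was lower (3.23, 2.82 and 2.74 against 1.48, 1.57 and 1.46, log2 difference -0.65, SE 0.10, adjusted p = 0.00126) and was the only called member of 4 tested stellate or mesenchymal markers. The others were LUM (0.22), ACTA2 (-0.27) and VIM (0.12). The whole list's summed level was 69.5 to 71.3 FPKM in PA+OA and 73.5 to 75.9 in PA+BMS. The part of any such shift in the results for other genes was not tested.

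The fibrosis genes, to which the study's title refers, were split. CTGF, a matricellular YAP target, was at 55.2, 77.3 and 80.5 FPKM in PA+OA and 25.4, 27.0 and 23.1 in PA+BMS (log2 difference -1.44, SE 0.20, adjusted p = 0.000519), with 9.62 to 17.6 in control and 21.6 to 27.4 in PA. PA+OA was the highest group of the series. COL1A1, the main chain of type I collagen, was not called, at 12.5, 10.4 and 10.8 against 10.4, 9.89 and 9.63 (log2 difference -0.15, SE 0.10, adjusted p = 0.204; 95% interval -0.36 to 0.06), and its sign turns with library totals set equal (0.16). TGFBR2, a TGF-beta receptor, was higher (3.87, 5.96 and 6.07 against 8.78, 9.65 and 11.0, log2 difference 0.79, SE 0.16, adjusted p = 0.00317), and the laminin LAMB3 (45.3, 33.2 and 33.3 against 24.2, 23.2 and 22.3, log2 difference -0.64, SE 0.14, adjusted p = 0.00447) and the inhibitor TIMP3 (2.65, 2.93 and 2.52 against 1.38, 1.49 and 1.47, log2 difference -0.60, SE 0.11, adjusted p = 0.00250) were lower. Of the matrix and TGF-beta list, 9 of 29 tested members (1 let in only through PA+OA) were higher (31.0%) and 8 lower (27.6%) in PA+BMS, where all genes gave 24.1% and 27.7% (median log2 difference 0.14). Matrix genes higher and lower numbered 4 and 3 with only the 6 libraries, 5 and 6 without both libraries and 10 and 5 with the trend removed. These numbered 6 and 6 with the trend removed and both left out, 13 and 3 with library totals set equal and 11 and 3 with voom on reads. Matrix genes lower numbered 5 without PA+OA replicate 1, 4 without PA+BMS replicate 3. Of YAP and SRF targets, 5 of 23 were higher (21.7%), among them NT5E (1.02), VCL (0.78) and CRIM1 (1.01), and 5 were lower (21.7%). YAP and SRF targets higher and lower numbered 3 and 2 with only the 6 libraries, 4 and 1 without both libraries and 5 and 6 in the 4 other libraries alone. Counts of both numbered 4 and 2 with the trend removed, 7 and 1 with library totals set equal and 7 and 1 with quantile normalization. YAP and SRF targets higher numbered 3 without PA+BMS replicate 3. YAP and SRF targets lower numbered 2 without PA+OA replicate 1, or without PA+BMS replicate 3. VCL differed by 0.50 and CRIM1 by 0.52 without both libraries. LAMB3 differed by -0.24 and VCL by 0.45 with the trend removed.

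Mitochondrial transcripts were mostly not called, except MT-ND6, the 1 protein-coding gene of the light strand. MT-ND6 was at 300.3, 275 and 233 FPKM in PA+OA and 784, 758 and 1794 in PA+BMS (log2 difference 1.93, SE 0.28, adjusted p = 0.000744), with 747 to 796 in control and 952 to 1350.4 in PA, and PA+BMS replicate 3 was more than 2-fold above the other PA+BMS libraries. PA+OA was the lowest of the 4 groups. MT-ND5, which abuts MT-ND6 on the opposite strand, was at 687, 562 and 594 against 699, 721 and 1698 and was not called (log2 difference 0.63, SE 0.29, adjusted p = 0.0856), with the same library the highest. The strand setting of the counting is not given in the sources used here, so reads from opposite strands cannot be told apart. MT-CO3 was lower (7381, 5479 and 6213 against 4046, 3912 and 5202, log2 difference -0.54, SE 0.21, adjusted p = 0.0462), a call lost in 10 of 12 fits that each left out 1 library (adjusted p up to 0.142, all but those without replicate 2 of PA+OA or replicate 3 of PA+BMS). MT-ATP6, which overlaps it, was not called (-0.34). Among 13 protein-coding mitochondrial genes 1 was higher (7.69%) and 1 lower (7.69%), where all genes gave 24.1% and 27.7%. Mitochondrial genes higher and lower numbered 1 and 1 without both libraries, 3 and 4 in the 4 other libraries alone and 1 and 0 with the trend removed. Higher and lower members numbered 4 and 0 with library totals set equal, 5 and 0 with quantile normalization and 4 and 1 with voom on reads. Mitochondrial genes higher numbered 2 without PA+BMS replicate 1 or 2. Mitochondrial genes lower numbered 2 without PA+BMS replicate 3, 0 without PA+OA replicate 1 or 3, or without PA+BMS replicate 1 or 2, or without any 1 of the 3 control libraries, or without any 1 of the 3 PA libraries. With precision weights 4 were higher and 5 lower. Mitochondrial ribosomal RNA took 2.10%, 1.51% and 1.64% of reads in PA+OA and 0.780%, 0.804% and 1.51% in PA+BMS. MT-CO3 differed by -0.43 (adjusted p = 0.112) with the trend removed, -0.20 (adjusted p = 0.316) with library totals set equal, -0.11 (adjusted p = 0.360) with quantile normalization and -0.54 (adjusted p = 0.175) with only the 6 libraries. MT-ND5 differed by 0.97 (adjusted p = 0.0139) with library totals set equal, 0.94 (adjusted p = 0.0143) with quantile normalization and 0.86 (adjusted p = 0.0155) with voom on reads.

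Cytosolic ribosomal protein genes were lower in PA+BMS in 49 of 77 cases (63.6%) and higher in 0 (median -0.61), where all genes gave 27.7% and 24.1%. The count moved with the fit. Ribosomal protein genes higher and lower numbered 0 and 2 with only the 6 libraries, 1 and 4 without both libraries and 2 and 32 in the 4 other libraries alone. Both numbered 0 and 28 with the trend removed, 0 and 1 with the trend removed and both left out, 4 and 14 with library totals set equal, 15 and 11 with quantile normalization and 2 and 28 with voom on reads. Ribosomal protein genes lower numbered 9 without PA+OA replicate 1, 6 without PA+BMS replicate 3. Among the members with the smallest p were RPS16 (-0.94), RPL38 (-0.61) and RPL18 (-0.99). RPS16, of the small subunit, shows the pattern, at 614, 391 and 362 FPKM in PA+OA and 281, 259 and 168 in PA+BMS (log2 difference -0.94, SE 0.23, adjusted p = 0.00881), where PA+OA replicate 1 was the highest library and PA+BMS replicate 3 the lowest. Without both it differed by -0.48 (adjusted p = 0.0410), and with the trend removed as well by -0.28 (adjusted p = 0.108). RPL38 differed by -0.33 without both libraries, -0.28 (adjusted p = 0.0870) with library totals set equal, -0.27 (adjusted p = 0.0744) with quantile normalization, -0.26 (adjusted p = 0.0895) with the trend removed and both left out and -0.61 (adjusted p = 0.0559) with only the 6 libraries. RPL18 differed by -0.44 without both libraries, -0.57 with the trend removed, -0.22 (adjusted p = 0.121) with the trend removed and both left out and -0.99 (adjusted p = 0.0532) with only the 6 libraries. With quantile normalization the direction of the list's counts turned.

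Stress-responsive metal, redox and glucose genes were also measured. The metallothioneins MT2A (448, 344 and 342 FPKM in PA+OA against 135, 132 and 45.3 in PA+BMS, log2 difference -1.99, SE 0.39, adjusted p = 0.00299), MT1X (7.03, 3.66 and 2.83 against 0.849, 0.869 and 0.654, log2 difference -1.55, SE 0.21, adjusted p = 0.000524) and MT1E (39.3, 42.4 and 33.2 against 22.4, 22.1 and 11.0, log2 difference -1.07, SE 0.22, adjusted p = 0.00438), which bind zinc and copper, were lower, and share near-identical sequence with other family members. The zinc transporter SLC39A7 differed by -0.47. In the list of metallothioneins, zinc and iron handling, 6 of 19 tested members (1 let in only through PA+OA) were higher (31.6%) and 4 lower (21.1%) in PA+BMS, where all genes gave 24.1% and 27.7% (median log2 difference 0.20). Metal-handling genes higher and lower numbered 0 and 3 with only the 6 libraries, 0 and 3 without both libraries and 2 and 4 in the 4 other libraries alone. The pair of counts numbered 3 and 4 with the trend removed, 0 and 4 with the trend removed and both left out and 10 and 3 with library totals set equal. Metal-handling genes higher numbered 0 without PA+OA replicate 1, or without PA+BMS replicate 3. Of NRF2 targets and glutathione genes, 9 of 32 tested members were higher (28.1%) and 6 lower (18.8%) in PA+BMS, where all genes gave 24.1% and 27.7% (median log2 difference -0.03), with the exporter ABCC2 (3.75, 5.78 and 6.15 against 12.3, 12.5 and 17.1, log2 difference 1.27, SE 0.18, adjusted p = 0.000634), glutathione reductase GSR (32.8, 40.1 and 38.3 against 61.6, 67.0 and 65.1, log2 difference 0.79, SE 0.11, adjusted p = 0.000689) and thioredoxin reductase TXNRD1 (197, 261 and 264 against 404, 444 and 446, log2 difference 0.85, SE 0.14, adjusted p = 0.00129) higher and the exporter ABCC3 lower (-0.59). NRF2 list genes higher and lower numbered 6 and 2 with only the 6 libraries, 7 and 2 without both libraries and 14 and 5 in the 4 other libraries alone. They numbered 12 and 4 with the trend removed, 10 and 2 with the trend removed and both left out, 15 and 4 with library totals set equal and 17 and 3 with quantile normalization. NRF2 list genes lower numbered 2 without PA+BMS replicate 3. SLC39A7 differed by -0.32 (adjusted p = 0.0517) without both libraries, -0.01 (adjusted p = 0.948) with the trend removed, -0.13 (adjusted p = 0.311) with library totals set equal, -0.01 (adjusted p = 0.903) with quantile normalization, -0.25 (adjusted p = 0.0787) with voom on reads, -0.08 (adjusted p = 0.516) with the trend removed and both left out and -0.47 (adjusted p = 0.0670) with only the 6 libraries. MT1E differed by -0.48 with the trend removed. TXNRD1 differed by 0.50 with the trend removed.

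In glucose uptake and glycolysis, 0 of 27 tested members were higher (0%) and 11 lower (40.7%) in PA+BMS, where all genes gave 24.1% and 27.7% (median log2 difference -0.47). The glucose transporter SLC2A1 was at 57.2, 47.3 and 45.7 FPKM in PA+OA and 27.4, 26.8 and 20.5 in PA+BMS (log2 difference -0.98, SE 0.13, adjusted p = 0.000497). ADM, adrenomedullin, was at 25.8, 27.7 and 27.3 against 12.2, 11.7 and 7.36 (log2 difference -1.32, SE 0.16, adjusted p = 0.000209). ANKRD37 was at 6.21, 4.80 and 5.13 against 2.46, 2.58 and 1.19 (log2 difference -1.08, SE 0.18, adjusted p = 0.00162). The glycolytic regulator PFKFB3 was at 9.66, 11.4 and 10.1 against 6.89, 6.68 and 6.09 (log2 difference -0.59, SE 0.11, adjusted p = 0.00229). ADM and ANKRD37 are known as hypoxia-responsive genes. TXNIP, an inhibitor of glucose uptake, was not called, at 4.75, 5.69 and 6.11 against 5.78, 6.33 and 5.21 (log2 difference 0.06, SE 0.12, adjusted p = 0.693; 95% interval -0.20 to 0.32), and its sign turned in some settings. Glucose genes higher and lower numbered 0 and 6 with only the 6 libraries, 0 and 5 without both libraries and 0 and 12 in the 4 other libraries alone. These numbered 1 and 9 with the trend removed, 3 and 4 with library totals set equal, 2 and 7 with quantile normalization and 3 and 10 with voom on reads. Glucose genes lower numbered 6 without PA+BMS replicate 3. SLC2A1 differed by -0.63, ADM by -0.75, ANKRD37 by -0.69 and PFKFB3 by -0.29 (adjusted p = 0.0673) with the trend removed. PFKFB3 differed by -0.29 (adjusted p = 0.0984) with library totals set equal.

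Among long noncoding RNAs, SNHG15, a snoRNA host transcript, was at 54.1, 39.0 and 33.8 FPKM in PA+OA and 13.4, 14.1 and 6.95 in PA+BMS (log2 difference -1.82, SE 0.25, adjusted p = 0.000524). AL592464.1 was listed at 3.08, 1.86 and 2.58 in PA+OA and 0.113, 0 and 0 in PA+BMS (adjusted p = 0.000180), with too few PA+BMS reads for a fold. AC012181.2, at 3.29, 7.10 and 7.55 against 1.13, 1.10 and 0.839 (log2 difference -1.73, SE 0.24, adjusted p = 0.000524), overlaps HERPUD1, so its reads cannot be told from those of that gene. On the higher side were NORAD, a cytoplasmic RNA that binds Pumilio proteins (9.60, 20.7 and 24.5 against 32.1, 31.2 and 55.2, log2 difference 1.12, SE 0.29, adjusted p = 0.00996), AC007785.1 (0, 0.685 and 0.636 against 4.24, 2.39 and 2.12, log2 difference 1.44, SE 0.25, adjusted p = 0.00180) and ANKRD10-IT1, which lies within ANKRD10 (0.0825, 0.426 and 2.18 against 3.64, 2.75 and 5.73, log2 difference 1.53, SE 0.35, adjusted p = 0.00606). NORAD differed by 0.47 without both libraries and 1.12 (adjusted p = 0.0528) with only the 6 libraries. ANKRD10-IT1 differed by 0.97 (adjusted p = 0.0595) without both libraries and 0.95 (adjusted p = 0.0729) with the trend removed and both left out.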

How the data were processed

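RNA of 12 HepaRG libraries was measured by poly(A)-selected RNA sequencing in 150 bp pairs, per the labels' protocols. CASAVA, HISAT2 2.0.5 and featureCounts 1.5.0-p3 are listed, with no roles, in the submitters' processing notes. The strand setting is not given in the sources used here. Deposited values are FPKM, and how the authors made them from reads is not stated. In each library all values times gene length were whole multiples of 1 step (100% within a tolerance of 0.001), so whole reads were recovered. The denominators of the deposited FPKM were 0.827, 1.03 and 1.03 times those totals in PA+OA replicates 1, 2 and 3. In PA+BMS they were 1.13, 1.14 and 1.09 times those totals, above all 3 of PA+OA. Rescaling the FPKM by the median of ratios between libraries gave 5850 called genes, as in the main fit. Gene identifiers matched GENCODE 29 on GRCh38, which gives the coordinates.

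From the deposited FPKM, log2(FPKM + 1) was fitted with limma 3.58.1 in R 4.3.3, with a mean for each of the 4 groups in the 12 libraries (residual df 8), a moderated spread with an intensity trend, 2-sided tests and Benjamini-Hochberg adjustment over all 11294 genes with at least 1 FPKM in at least 3 of the 6 libraries. FPKM are not counts, so voom on recovered reads was only an alternative. The comparison, the gene lists and the alternatives were chosen with earlier results of these data known. Text names the 12 protein-coding genes with the largest called rise and fall without overlap between groups, up to 4 members with the smallest p of each list, 24 fixed genes and the 3 largest long noncoding changes each way. A few genes under this rule are not reported here. HSPA8, HSPD1, CANX, CALR, XBP1, CRELD2, HYOU1, SDF2L1, HSP90B1, PDIA6, FGF21, HSP90AA1, HSP90AB1, DNAJB6, CHORDC1, CEBPG and JDP2 were added after their values were seen, chosen for their motif matches or as HSP70 and HSP60 relatives. No 2 libraries of a group were near-duplicates (chi-square per gene 3.46 to 67.6). On simulated data with 11294 genes, the fit of 12 libraries recovered 95% of 2-fold and 62% of 1.5-fold changes with 3.68% of calls false. The fit of 6 libraries recovered 96% and 49% with 8.23% false. The simulated reads had few changed genes, no trend with GC content or length and no library that stands apart. These rates therefore do not give the share of false calls in the real data. Floors from reads cover counting error only. Of the printed genes 51 overlap another expressed gene, so shared reads are uncertain. Alternatives were other pseudocounts, filters, scalings, weights and gene classes, a replicate block, the 6 libraries alone, leaving out libraries, and subtraction of a fitted dependence on GC content and length in every library. Promoter windows are from RefSeq, and figures were drawn with matplotlib 3.10.9.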

Additional observations from a re-analysis of the deposited data

How the results depend on the processing

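Leaving out 1 library at a time gave 3188 to 6259 called genes, 1409 to 2858 higher and 1779 to 3401 lower, with the lowest numbers without PA+BMS replicate 3 and the next without PA+OA replicate 1. The numbers called, higher and lower were 3771, 1414 and 2357 with a filter at 5 FPKM, where 6455 genes were tested, 2425, 1031 and 1394 with only the 6 libraries, and 2657, 1112 and 1545 without both libraries that stand apart. Without both and with only the 4 other libraries of the 2 groups in the fit they were 4544, 1937 and 2607. They were 3824, 1989 and 1835 once the GC and length trend was subtracted, 2176, 1102 and 1074 with both libraries also left out, and 2004, 1077 and 927 in the 6 libraries alone after that subtraction. Library totals set equal gave 6017, 4522 and 1495, and voom on reads 5897, 3929 and 1968. With precision weights, where PA+OA rested mainly on replicate 2, 8499 were called. No filter gave 4419 of 28099 genes, and a pseudocount of 0.1 gave 5783 calls, of which 1271 were at least 2-fold against 551. The cause of these shifts was not tested.

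Of 180 tested genes named here 166 were called, and 160 of these calls held in all 12 fits that left out 1 library, the exceptions being HSPD1, CANX, CPT1A, MT-CO3, ALDH3A1 and TIPARP. Calls lost with the same sign numbered 7 at equal library totals, 7 with quantile normalization, 16 in the 6 libraries alone, 12 without both libraries, 5 in the 4 other libraries alone, 21 with the trend removed, 18 with the trend removed and the replicate block, 1 by voom, 40 with the trend removed and both left out, 38 with the trend removed in the 6 alone and 6 with no filter, and at most 1 in each other alternative that kept all libraries. Those lost with the trend removed and both left out were HSPD1, CANX, DDIT3, ATF3, GDF15, NR1H3, MLXIPL, HACD3, CRABP2, SCP2, ACSL3, CPT1A, PPARA, HSD17B4, MKI67, BUB1B, HPD, CPS1, RPS16, RPL38, RPL18, ANKRD10-IT1, SPHK1, SPHK2, BCL2, BCL2L1, PSMD1, PSMC2, ZNF524, ALDH3A1, BAK1, BAX, LPCAT2, PSMC4, PSMD14, SLC39A7, TIPARP, ZNF296, ZNF414 and ZNF784. In the 6 alone with the trend removed, CALR, LAMB3, MT-CO3, MT1E, PFKFB3, NORAD, WNT9A, LAMP2 and FARSA were lost that are not among these. HSP90B1 changed sign, from 0.22 to -0.041 with precision weights, -0.15 without both libraries and -0.073 with the trend removed. With the trend removed and both left out HSP90B1 was called lower (-0.30, adjusted p = 0.0450). PDIA6 changed sign, from -0.11 to 0.22 at equal library totals, 0.32 with quantile normalization and 0.11 by voom. FABP3 changed sign, from -0.28 to 0.047 at equal library totals, 0.035 with the trend removed and 0.16 with the trend removed and both left out. COL1A1 changed sign, from -0.15 to 0.16 at equal library totals, 0.059 with the trend removed and by voom and 0.081 with the trend removed and both left out. TXNIP changed sign, from 0.06 to -0.011 with quantile normalization, -0.084 with the trend removed and -0.052 with the trend removed and both left out. ACTA2 changed sign, from -0.27 to 0.045 with the trend removed. LPCAT3 changed sign, from -0.11 to 0.19 at equal library totals, 0.087 with precision weights, 0.059 without both libraries, 0.023 with the trend removed, 0.098 by voom and 0.15 with the trend removed and both left out. LUM changed sign, from 0.22 to -0.0039 with the trend removed. MT-ATP6 changed sign, from -0.34 to 0.12 with quantile normalization. PSMD14 changed sign, from 0.42 to -0.10 with the trend removed. TXNIP ranged from -0.0296 to 0.124 over the fits that left out 1 library. LPCAT3 ranged from -0.209 to 0.0385 over the fits that left out 1 library. Values with the trend removed were the same with the replicate block or in the 6 libraries alone, and those without both libraries the same in the 4 that remained.

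Deviations of same-numbered PA+OA and PA+BMS libraries from their group means had correlations of 0.54, -0.15 and 0.59 across genes. Deviations from a mean of 3 libraries depend on each other, and 1 library of each group stands apart. Whether the numbers pair the samples therefore cannot be told from these values. PA+OA replicates 1 and 3 correlated best with their own number and replicate 2 did not. With the replicate block 6525 genes were called, 3013 higher and 3512 lower, and 4262 with the block after GC and length were accounted for.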

Other observations

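Shares of list members called below stand beside 24.1% higher and 27.7% lower over all genes. In phospholipid synthesis, 6 of 24 tested members were higher (25.0%) and 4 lower (16.7%; median -0.02). LPCAT1, which reacylates lysophosphatidylcholine, was at 6.53, 7.15 and 7.98 FPKM in PA+OA and 14.3, 14.6 and 15.2 in PA+BMS (log2 difference 0.94, SE 0.12, adjusted p = 0.000284), and choline kinase CHKA at 16.4, 21.3 and 23.4 against 32.1, 33.7 and 35.3 (log2 difference 0.71, SE 0.12, adjusted p = 0.00167). In ceramide and sphingosine metabolism, 7 of 23 tested members (1 let in only through PA+BMS) were higher (30.4%) and 5 lower (21.7%; median 0.10). CERK, ceramide kinase, was higher (7.23, 8.58 and 7.64 against 14.7, 14.5 and 12.6, log2 difference 0.76, SE 0.11, adjusted p = 0.000741), while the sphingosine kinases SPHK1 (45.3, 26.0 and 24.8 against 18.1, 17.9 and 13.4, log2 difference -0.88, SE 0.20, adjusted p = 0.00621) and SPHK2 (log2 difference -0.69) and the ceramide synthase CERS5 (-0.58) were lower. The acyltransferases AGPAT5 (0.82) and LPCAT2 (0.52) were higher. Among Wnt ligands and inhibitors, 5 of 16 tested members were higher (31.2%) and 2 lower (12.5%; median 0.09), with the receptor LGR4 (1.18, 2.32 and 2.41 against 4.18, 4.33 and 6.27, log2 difference 1.01, SE 0.18, adjusted p = 0.00186), WNT5A (2.51, 3.58 and 4.92 against 6.75, 7.93 and 8.31, log2 difference 0.92, SE 0.16, adjusted p = 0.00206) and ZNRF3, a ubiquitin ligase (0.61), higher. WNT9A was lower (5.38, 5.38 and 5.00 against 2.47, 2.92 and 2.39, log2 difference -0.80, SE 0.12, adjusted p = 0.000689). LPCAT2 differed by 0.35 (adjusted p = 0.0646), SPHK1 by -0.47, SPHK2 by -0.45 and LGR4 by 0.64 without both libraries. AGPAT5 differed by 0.53, LPCAT2 by 0.00 (adjusted p = 0.983), SPHK1 by -0.38, SPHK2 by -0.30, LGR4 by 0.61, WNT5A by 0.51 and WNT9A by -0.33 with the trend removed. LPCAT2 differed by 0.10 (adjusted p = 0.618), SPHK1 by -0.21 (adjusted p = 0.0778) and SPHK2 by -0.23 (adjusted p = 0.124) with the trend removed and both left out.

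Among aryl hydrocarbon and xenobiotic receptor targets, 4 of 10 tested members (1 let in only through PA+BMS) were higher (40.0%) and 2 lower (20.0%; median 0.16). ALAS1, the first enzyme of heme synthesis, was lower (73.3, 61.6 and 64.1 against 36.2, 36.3 and 30.3 FPKM, log2 difference -0.93, SE 0.11, adjusted p = 0.000230), and TIPARP differed by 0.64, ALDH3A1 by -0.64 and CYP1B1 by 0.82. CYP1A1, which was not tested, was at 0.903, 0.629 and 0.522 FPKM in PA+OA and 0.212, 0.346 and 0.264 in PA+BMS. In autophagy and lysosome genes, 11 of 39 tested members were higher (28.2%) and 13 lower (33.3%; median -0.10), with the cargo receptor SQSTM1 lower (588, 443 and 417 against 320.3, 304 and 242, log2 difference -0.73, SE 0.16, adjusted p = 0.00567) and GABARAPL1 (-0.72) and ATG13 (-0.60) lower. The lysosomal LAMP2 was higher (7.85, 12.2 and 14.0 against 19.1, 18.7 and 23.7, log2 difference 0.83, SE 0.17, adjusted p = 0.00439). Of aminoacyl-tRNA synthetases, 9 of 30 tested members were higher (30.0%) and 10 lower (33.3%; median 0.02), with cytosolic SARS (-0.89), WARS (-0.60) and FARSA (-0.99) lower and mitochondrial IARS2 (0.98) higher. Of proteasome subunits, 6 of 29 tested members were higher (20.7%) and 8 lower (27.6%; median -0.23), with PSMD1 higher (11.3, 13.0 and 15.2 against 21.5, 23.4 and 38.5, log2 difference 0.99, SE 0.22, adjusted p = 0.00531), and PSMC2 at 0.43, PSMD14 at 0.42 and PSMC4 at -0.67. In the BCL2 family, 1 of 13 tested members were higher (7.69%) and 6 lower (46.2%; median -0.44), with BCL2 higher (0.493, 1.10 and 1.22 against 1.96, 1.88 and 2.79, log2 difference 0.74, SE 0.15, adjusted p = 0.00427) and BCL2L1 lower (21.0, 13.9 and 14.2 against 10.5, 9.59 and 9.41, log2 difference -0.66, SE 0.15, adjusted p = 0.00599). The pro-apoptotic BAX differed by -0.95 and BAK1 by -0.78. TIPARP differed by 0.27 (adjusted p = 0.210), ALDH3A1 by -0.34 (adjusted p = 0.101), PSMD14 by 0.26 (adjusted p = 0.0552) and BAX by -0.48 (adjusted p = 0.0655) without both libraries. TIPARP differed by 0.31 (adjusted p = 0.0942), ALDH3A1 by -0.16 (adjusted p = 0.202), PSMD14 by -0.10 (adjusted p = 0.350), PSMC4 by -0.16 (adjusted p = 0.119), BAX by -0.35 (adjusted p = 0.0628), BAK1 by -0.17 (adjusted p = 0.231) and BCL2L1 by -0.20 (adjusted p = 0.0776) with the trend removed. WARS differed by -0.27 (adjusted p = 0.0812) and GABARAPL1 by -0.39 (adjusted p = 0.0524) with library totals set equal. WARS differed by -0.25 (adjusted p = 0.107) and SQSTM1 by -0.11 (adjusted p = 0.293) with quantile normalization. TIPARP differed by 0.10 (adjusted p = 0.623), ALDH3A1 by -0.09 (adjusted p = 0.528), PSMC2 by 0.23 (adjusted p = 0.0542), PSMD14 by 0.01 (adjusted p = 0.947), PSMC4 by -0.05 (adjusted p = 0.564), BAX by -0.17 (adjusted p = 0.391), BAK1 by -0.10 (adjusted p = 0.439), PSMD1 by 0.48 (adjusted p = 0.0544), BCL2 by 0.21 (adjusted p = 0.199) and BCL2L1 by -0.21 (adjusted p = 0.0987) with the trend removed and both left out. TIPARP differed by 0.64 (adjusted p = 0.0648), ALDH3A1 by -0.64 (adjusted p = 0.0616), PSMC2 by 0.43 (adjusted p = 0.0502), PSMD14 by 0.42 (adjusted p = 0.0694), PSMC4 by -0.67 (adjusted p = 0.0566) and BAK1 by -0.78 (adjusted p = 0.0532) with only the 6 libraries. TIPARP was not called without PA+OA replicate 1 and without PA+BMS replicate 3 (highest adjusted p = 0.0873). ALDH3A1 was not called without PA+BMS replicate 3 (highest adjusted p = 0.0567).

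Of 72 tested zinc finger genes of chromosome 19 (1 let in only through PA+OA and 2 let in only through PA+BMS), 13 were higher (18.1%) and 17 lower (23.6%). The 4 with the smallest p were ZNF524 (-0.95), ZNF414 (-1.09), ZNF296 (-1.27) and ZNF784 (-0.96). ZNF414 differed by -0.71, ZNF296 by -0.84 and ZNF784 by -0.57 without both libraries. ZNF524 differed by -0.19 (adjusted p = 0.0649), ZNF414 by -0.43, ZNF296 by -0.52 and ZNF784 by -0.25 (adjusted p = 0.0821) with the trend removed. ZNF524 differed by -0.24 (adjusted p = 0.0672), ZNF414 by -0.36 (adjusted p = 0.0589), ZNF296 by -0.43 (adjusted p = 0.196) and ZNF784 by -0.19 (adjusted p = 0.269) with the trend removed and both left out. Higher and lower members in these lists varied with the scaling and with the libraries in the fit. For lists where either number moved by more than 1.5 times, the numbers follow. With library totals set equal, when 40.0% of all genes were higher and 13.2% lower, they numbered 12 and 0 for phospholipid synthesis, 11 and 4 for ceramide metabolism, 9 and 1 for Wnt genes, 14 and 4 for autophagy, 15 and 4 for tRNA synthetases, 12 and 1 for proteasome subunits, 1 and 3 for the BCL2 family and 26 and 9 for zinc finger genes. By voom, beside 34.8% and 17.4% of all genes, they numbered 11 and 0 for phospholipid synthesis, 7 and 1 for Wnt genes, 14 and 6 for autophagy, 10 and 3 for proteasome subunits and 21 and 10 for zinc finger genes. Quantile normalization, beside 26.6% and 23.9%, gave 14 and 4 for tRNA synthetases and 8 and 1 for proteasome subunits. Without both libraries that stand apart, beside 9.85% and 13.7%, the numbers were 3 and 1 for phospholipid synthesis, 2 and 4 for ceramide metabolism, 1 and 2 for receptor targets, 5 and 6 for autophagy, 2 and 5 for tRNA synthetases, 4 and 1 for proteasome subunits, 1 and 2 for the BCL2 family and 0 and 13 for zinc finger genes. The 4 other libraries alone, beside 17.2% and 23.1%, gave 4 and 5 for ceramide metabolism, 2 and 3 for receptor targets and 0 and 16 for zinc finger genes. The 6 libraries alone, beside 9.13% and 12.3%, gave 4 and 1 for phospholipid synthesis, 1 and 4 for ceramide metabolism, 4 and 1 for Wnt genes, 1 and 1 for receptor targets, 2 and 5 for autophagy, 4 and 5 for tRNA synthetases, 1 and 0 for proteasome subunits, 1 and 3 for the BCL2 family and 0 and 7 for zinc finger genes. With the trend removed, beside 17.6% and 16.3%, the numbers were 5 and 1 for phospholipid synthesis, 3 and 7 for ceramide metabolism, 7 and 1 for Wnt genes, 2 and 1 for receptor targets, 3 and 9 for autophagy, 2 and 2 for proteasome subunits, 2 and 1 for the BCL2 family and 4 and 8 for zinc finger genes.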
